A study of Mus musculus with 18 samples.

Results

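Regulatory T cells (Treg) labelled as deleted for the transcription factor gene Mef2c were compared with wild-type Treg by RNA sequencing. Of the 18 libraries in the series, 6 enter the comparison, chosen by the names of their columns in the deposited table: 3 labelled Mef2c deletion and 3 wild type. The Mef2c-labelled mice carried floxed Mef2c alleles and the Foxp3-YFP-cre allele, which expresses Cre recombinase and yellow fluorescent protein where Foxp3, the defining transcription factor of Treg, is transcribed. Wild-type mice carried Foxp3-YFP-cre alone, so both groups have the Cre allele. All mice were males between 6 and 8 weeks old, and cells were enriched for CD4 on a column and then sorted on the yellow fluorescence. The series describes the 3 replicates of a group as independent and biological. The other 12 libraries, labelled as Foxp3-cre deletions of Mef2d, Dyrk1, HDAC1 or HDAC2 with 3 replicates each, serve here to estimate the spread and to ask where the Mef2c-labelled libraries differ from other deletion groups. One protocol text speaks of a knockout of Rcor1, a corepressor gene, in place of the genes named in the labels. Rcor1 was at 18.3, 17.9 and 17.3 FPKM in Mef2c-labelled libraries, against 16.1, 16.1 and 15.2 FPKM in wild type (log2 difference 0.16, SE 0.05, adjusted p 0.0299).

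MEF2 proteins are transcription factors that bind an A/T-rich DNA element and switch between activation and repression according to their partner. Class IIa histone deacetylases (Hdac4, Hdac5, Hdac7 and Hdac9) hold them in a repressing state, calcium signals expel those deacetylases, and the kinase ERK5 (Mapk7), with its upstream kinases Map2k5 and Map3k3, activates MEF2. Among lymphocytes, Mef2c is best known from B cells, while T cells chiefly express Mef2d and Mef2a. Klf2, which encodes a factor that keeps T cells quiescent and recirculating, is a known target of ERK5 and MEF2. Its promoter is shown here because Klf2 was the MEF2 target gene that fell in the Mef2c-labelled libraries. The RefSeq sequence runs from 250 bases before to 50 bases after the gene start on GRCm38.p6 (chr8:72318812-72319111, plus strand). Capitals mark a match to the MEF2 consensus, which begins 118 bases before the start and reads as a match on both strands.
Klf2: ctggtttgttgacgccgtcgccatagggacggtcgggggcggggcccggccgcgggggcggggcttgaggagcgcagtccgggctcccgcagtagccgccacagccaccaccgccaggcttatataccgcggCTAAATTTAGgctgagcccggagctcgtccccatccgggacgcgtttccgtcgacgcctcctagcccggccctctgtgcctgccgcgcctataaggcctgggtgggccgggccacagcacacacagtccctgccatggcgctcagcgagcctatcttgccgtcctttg
A match to that consensus on either strand was found in 1.91% of the promoters of genes tested that are in the RefSeq table (169 of 8869), in 2.09% of those of genes higher in Mef2c-labelled libraries (24 of 1149) and in 1.75% of those of genes lower in them (9 of 515). A match is a description of the letters and not a shown binding site.

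Values are treated as FPKM (fragment counts scaled to transcript length and library size). The depth recovered from the steps between low values was 20.64, 18.26 and 19.91 M reads (M, 10 to the power of 6) in the Mef2c-labelled libraries and 20.6, 19.89 and 18.54 M reads in wild type, within a range of 15.92 to 24.09 M over all 18. Foxp3 was at 111, 103 and 95.3 FPKM in Mef2c-labelled libraries, against 92.7, 106 and 88 FPKM in wild type and did not pass (log2 difference 0.11, SE 0.10, adjusted p 0.497). The 12 T cell and Treg markers had mean log2(FPKM + 1) values of 7.903, 7.839 and 7.976 in Mef2c-labelled libraries and 7.855, 8.005 and 7.826 in wild type. B cell markers, in contrast, were uneven. The mean log2(FPKM + 1) of 24 B cell genes was 4.396, 3.531 and 3.931 in Mef2c-labelled libraries, against 2.906, 3.249 and 3.519 in wild type, so all Mef2c-labelled values lay above wild type, replicate 1 by the most and replicate 2 barely. The summed FPKM of the same genes ordered the libraries otherwise, at 2974, 2280 and 2288 in Mef2c-labelled libraries and 1880, 4921 and 2516 in wild type, with wild-type replicate 2 the highest. Cd79a, part of the B cell receptor complex, was at 36.9, 17.5 and 26.9 FPKM in Mef2c-labelled libraries, against 5.46, 12.5 and 14.2 FPKM in wild type (adjusted p 0.284). It was named after its values were seen, and did not pass. No marker of the list was at 0 in any of the 6 libraries. In 13 of the 24 B cell markers all Mef2c-labelled values lay above all wild-type values, where 23.5% of all genes tested did so, and 1 of the 24 passed the test. The median log2 difference of the 24 was 0.70, and 0.44 without Mef2c-labelled replicate 1. In bulk RNA, fewer cells of a type and less RNA per cell cannot be told apart. List counts are therefore also given without that replicate.

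Mef2c itself (ENSMUSG00000005583, chromosome 13, 83504034 to 83667080) was barely read. It was at 1.95, 0.903 and 0.945 FPKM in Mef2c-labelled libraries, against 0.302, 0.571 and 0.554 FPKM in wild type. The Mef2c-labelled values were all above the wild-type ones, so the gene total was not lower in the libraries labelled as its deletion. The difference did not pass (log2 difference 0.59, SE 0.51, adjusted p 0.446, 95% interval -0.50 to 1.69). The highest Mef2c values of the series, 8.02 FPKM in Dyrk1-labelled replicate 1 and 2.81 FPKM in Mef2d-labelled replicate 1, were in the 2 libraries with the most Cd79a, at 127 and 56.1 FPKM, and Mef2c-labelled replicate 1 also stood highest in its group for both genes. With the B cell marker mean as a covariate, the Mef2c difference was -0.07. By the summed FPKM of the 24 B cell genes the order was otherwise, with 14640 in HDAC1-labelled replicate 2 against 5094 and 4275 in those 2 libraries. The same 2 libraries also had the highest means of CD8 T cell and neutrophil markers in the series. In its group, Mef2c-labelled replicate 1 was highest for these as well (2.748 and 3.344). The part of B cell RNA in the difference was not tested in another way, and that of other cell types was not tested. The table gives 1 value per gene, so it does not show which exons the reads came from, and a lost exon could not be seen in it.

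Among the other MEF2 factors, Mef2d was the most strongly expressed, at 49.3, 47.6 and 48.3 FPKM in Mef2c-labelled libraries, against 40.9, 46.6 and 37.5 FPKM in wild type. Its values did not overlap between the groups but did not pass (log2 difference 0.22, SE 0.08, adjusted p 0.0693), and they passed without Dyrk1-labelled replicate 3 or wild-type replicate 2 (adjusted p 0.0166 to 0.0456). Mef2a was at 13.1, 14.2 and 12.4 FPKM in Mef2c-labelled libraries, against 11.8, 13.2 and 10.9 FPKM in wild type (log2 difference 0.13, SE 0.08, adjusted p 0.266), with overlapping groups. Mef2b stayed under the level needed for testing, at 0, 0.0408 and 0 FPKM in Mef2c-labelled libraries and 0.145, 0.112 and 0.121 FPKM in wild type. Of the 12 MEF2 factors, class IIa deacetylases and MEF2 regulators listed, 11 were tested, 3 were higher and 0 were lower in Mef2c-labelled libraries, while over all 12223 genes tested 12.9% were higher and 6.06% lower. Hdac9, itself a gene that MEF2 is known to activate and whose product represses MEF2, was at 2.04, 2.29 and 2.04 FPKM in Mef2c-labelled libraries, against 0.943, 0.762 and 0.817 FPKM in wild type (log2 difference 0.76, SE 0.18, adjusted p 0.0108). All Mef2c-labelled values lay above wild type, and the difference passed without replicate 1 as well (adjusted p 0.0329). Hdac4, another class IIa deacetylase, was at 7.32, 7.56 and 6.66 FPKM in Mef2c-labelled libraries, against 5.07, 5.64 and 5.65 FPKM in wild type (log2 difference 0.34, SE 0.10, adjusted p 0.0251). The Hdac4 call was lost without Mef2c-labelled replicate 1 or 2 or wild-type replicate 1 or 3 (adjusted p 0.0583 to 0.0893), and with median-of-ratios scaling (adjusted p 0.054). Map3k3, the kinase at the head of the ERK5 cascade, was at 39.2, 42.7 and 38.7 FPKM in Mef2c-labelled libraries, against 34.1, 34.6 and 32.1 FPKM in wild type (log2 difference 0.25, SE 0.06, adjusted p 0.0124). The Map3k3 call was lost without Mef2c-labelled replicate 2 or wild-type replicate 3 (adjusted p 0.0567 to 0.0622), and with median-of-ratios scaling (adjusted p 0.0701). The number of rises in the list was 1 (Mef2c-labelled replicate 2 or wild-type replicate 3 left out), and 2 without Mef2c-labelled replicate 1.

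Of the 6 genes listed as MEF2 targets, Hdac9 rose and Klf2 fell, and Nr4a1, Jun, Il2 and Il10 did not pass. Klf2 (ENSMUSG00000055148, chromosome 8, 72319033 to 72321656) was at 145, 147 and 171 FPKM in Mef2c-labelled libraries, against 226, 255 and 236 FPKM in wild type. The groups were well separated (log2 difference -0.63, SE 0.14, adjusted p 0.00532), and the difference passed without Mef2c-labelled replicate 1 (adjusted p 0.0286) and under every other alternative run. Against the mean of the other 4 deletion groups Klf2 did not pass (log2 difference -0.31, SE 0.11, adjusted p 0.0883), where single libraries ranged from 160.0 to 259 FPKM.

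**Figure D1:**
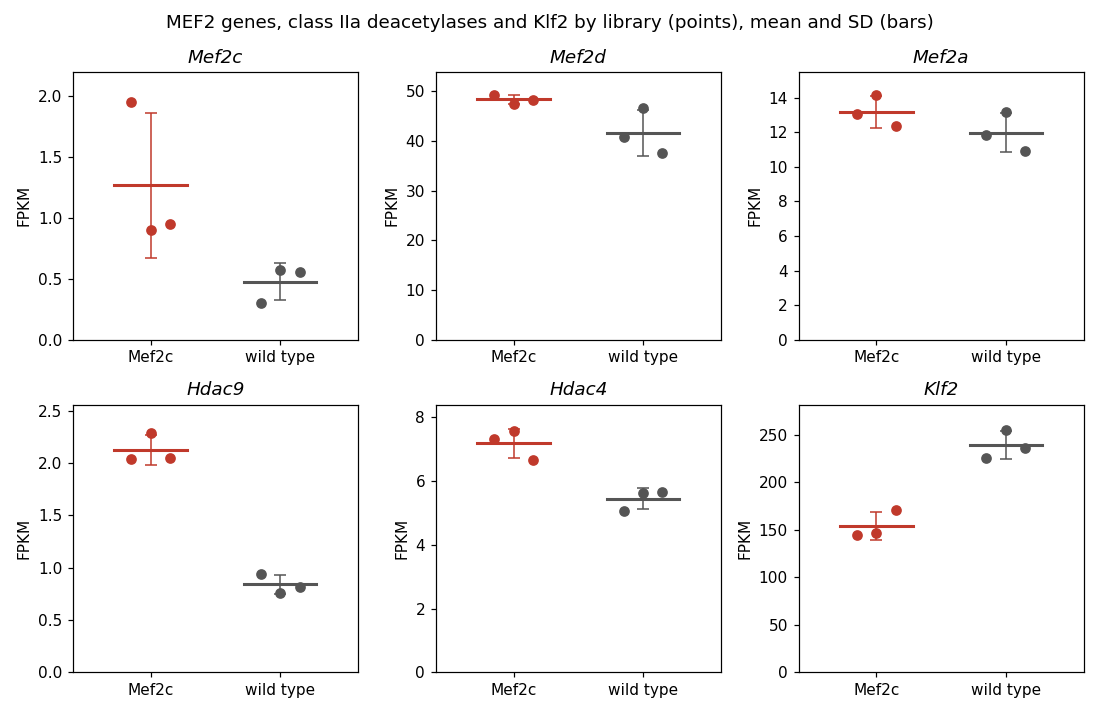
FPKM of Mef2c, Mef2d, Mef2a, Hdac9, Hdac4 and Klf2 in the 3 Mef2c-labelled libraries (left) and the 3 wild-type libraries (right); points are libraries, long bars means and whiskers SD. Klf2 sits between 145 and 171 FPKM in Mef2c-labelled libraries, under all wild-type values, while the Mef2c values of the Mef2c-labelled libraries lie above those of wild type, a difference that did not pass.

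Across all genes the Mef2c-labelled libraries differed from wild type in 2322 of 12223 (19%), of which 1581 (12.9%) were higher and 741 (6.06%) lower. That excess of higher genes depended on the scaling. With a median-of-ratios scaling 1107 were higher and 1098 lower, and the median log2 difference of all genes moved to -0.004, against 0.040 as deposited. Most differences were small: 232 passing genes exceeded 1 on the log2 scale, 130 higher and 102 lower, and 211 of these also passed without Mef2c-labelled replicate 1. Without that replicate 797 genes were higher (6.52%) and 387 lower (3.17%), and 1159 genes were called with the same sign both with and without it. Leaving out wild-type replicate 3 gave 1150 calls, a number close to the 1184 without Mef2c-labelled replicate 1. Groups did not overlap for 36.3% of genes, 23.5% with the Mef2c-labelled values above and 12.8% with them below. Of the 2322 passing genes 2269 had groups that did not overlap, and the rule for the largest differences required it. Among passing genes described here, the groups of Fosl2, Pgk1 and Psat1 overlapped.

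Several of the largest rises are given first. Apart from Mtmr9, these were in genes at low levels in wild-type libraries, between 0.483 and 3.16 FPKM. Orm2, an acute-phase plasma protein of the orosomucoid family (ENSMUSG00000061540, chromosome 4, 63362449 to 63365878), was at 27.5, 29.6 and 27.5 FPKM in Mef2c-labelled libraries, against 2.69, 2.46 and 2.37 FPKM in wild type (log2 difference 3.06, SE 0.13, adjusted p 3.31e-10). Mtmr9, a catalytically inactive member of the myotubularin lipid phosphatases (ENSMUSG00000035078, chromosome 14, 63519651 to 63543982), was at 107, 102 and 97.4 FPKM in Mef2c-labelled libraries, against 15.2, 11 and 11.2 FPKM in wild type (log2 difference 2.95, SE 0.11, adjusted p 1.06e-10). Its neighbour on the same chromosome, Xkr6 (63606503 to 63820809), a membrane protein of the XK-related family, was at 13.3, 8.27 and 12.4 FPKM in Mef2c-labelled libraries, against 0.483, 0.769 and 0.65 FPKM in wild type (log2 difference 2.90, SE 0.15, adjusted p 4.77e-09). Mtmr9 and Xkr6 lie within the same stretch of chromosome 14, and for both the lowest Mef2c-labelled value was several fold above the highest wild-type value. Pstpip2, an adaptor of the actin cytoskeleton known from macrophages, was at 16.4, 16.8 and 16.1 FPKM in Mef2c-labelled libraries, against 3.16, 1.77 and 1.74 FPKM in wild type (log2 difference 2.46, SE 0.22, adjusted p 2.11e-06). Tlcd2, a membrane protein with a TLC domain, was at 9.5, 9.49 and 9.45 FPKM in Mef2c-labelled libraries, against 1.68, 1.83 and 2.53 FPKM in wild type (log2 difference 1.81, SE 0.14, adjusted p 4.2e-07). The spread of Tlcd2 within the Mef2c-labelled group was far below its distance from wild type.

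Hmga1b, a chromatin protein gene on chromosome 11, was at 14, 14.3 and 16.6 FPKM in Mef2c-labelled libraries, against 1.1, 0.897 and 0.929 FPKM in wild type (log2 difference 3.01, SE 0.33, adjusted p 2.13e-05). Hmga1, from which it differs little in sequence, moved the other way, at 32, 36.7 and 36.4 FPKM in Mef2c-labelled libraries, against 65.8, 52.9 and 78.5 FPKM in wild type (log2 difference -0.87, SE 0.12, adjusted p 0.000155). How the counting treated reads shared by near-identical copies was not checked, so the Hmga1b value is uncertain. Hmga1 was named after its values were seen.

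Cyp4f18, an enzyme that inactivates leukotriene B4, was at 8.86, 7.72 and 8.23 FPKM in Mef2c-labelled libraries, against 0.142, 0.502 and 1.24 FPKM in wild type (log2 difference 2.56, SE 0.54, adjusted p 0.00509). Wdfy4, known for antigen cross-presentation in dendritic cells, was at 7.45, 5.73 and 5.57 FPKM in Mef2c-labelled libraries, against 0.421, 0.792 and 1.28 FPKM in wild type (log2 difference 2.00, SE 0.49, adjusted p 0.0113). Elsewhere in the series both were highest in Dyrk1-labelled replicate 1, at 6.91 and 7.76 FPKM, and next in Mef2d-labelled replicate 1, at 2.97 and 4.96 FPKM. These 2 libraries had the highest mean log2(FPKM + 1) of B cell genes in the series, at 5.668 and 4.716. The summed FPKM of those genes was highest in HDAC1-labelled replicate 2, at 14640 against 5094 and 4275. The same 2 libraries also had the highest means of CD8 T cell markers (5.056 and 3.227) and neutrophil markers (4.122 and 3.74). Dyrk1-labelled replicate 1 was highest for dendritic cell (2.475) and macrophage (3.0) markers too. For NK and plasma cell markers HDAC2-labelled replicate 2 was highest (3.091 and 5.732). From which cell type the reads of Cyp4f18 and Wdfy4 came was not tested. Cyp4f18 and Wdfy4 passed without Mef2c-labelled replicate 1 (adjusted p 0.0229 and 0.0485) and with the B cell marker mean as a covariate.

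Interferon-induced genes supplied several of the largest rises. Ifi44l was at 8.18, 7.1 and 6.72 FPKM in Mef2c-labelled libraries, against 0, 0 and 0.222 FPKM in wild type (log2 difference 2.96, SE 0.12, adjusted p 1.92e-10). It was listed at 0 in 2 of the 3 wild-type libraries. Its neighbour Ifi44 was at 6.12, 4.5 and 4.67 FPKM in Mef2c-labelled libraries, against 0.227, 0.804 and 0.637 FPKM in wild type (log2 difference 1.98, SE 0.18, adjusted p 3.04e-06). Xaf1, an interferon-induced antagonist of the apoptosis inhibitor XIAP, was at 49.1, 51.6 and 52 FPKM in Mef2c-labelled libraries, against 10.1, 17.4 and 15.1 FPKM in wild type (log2 difference 1.80, SE 0.17, adjusted p 6.69e-06). Each of the 3 passed without Mef2c-labelled replicate 1.

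Schlafen genes on chromosome 11, also induced by interferon and tied to T cell quiescence, moved in opposite directions. Slfn9 (ENSMUSG00000069793, chromosome 11, 82978390 to 82991830) was at 19, 15.5 and 13.8 FPKM in Mef2c-labelled libraries, against 4.58, 4.37 and 4.1 FPKM in wild type (log2 difference 1.67, SE 0.12, adjusted p 1.76e-07). Slfn8 (ENSMUSG00000035208, chromosome 11, 83002158 to 83020810), the next gene, was at 3, 1.87 and 1.79 FPKM in Mef2c-labelled libraries, against 23, 29.9 and 23.9 FPKM in wild type (log2 difference -3.06, SE 0.14, adjusted p 8.5e-10). Neither gene's groups came near each other. A RefSeq promoter of each gene on GRCm38.p6 is shown because of this contrast, Slfn8 at chr11:83020761-83021060 and Slfn9 at chr11:82991781-82992080, both on the minus strand. RefSeq has 2 promoters for Slfn8, and the other is not shown. Capitals mark the core of the interferon-stimulated response element, read as TTTC, 2 bases of any kind and TTTC, which begins 48 bases before the Slfn8 start and 45 bases before the Slfn9 start.
Slfn8: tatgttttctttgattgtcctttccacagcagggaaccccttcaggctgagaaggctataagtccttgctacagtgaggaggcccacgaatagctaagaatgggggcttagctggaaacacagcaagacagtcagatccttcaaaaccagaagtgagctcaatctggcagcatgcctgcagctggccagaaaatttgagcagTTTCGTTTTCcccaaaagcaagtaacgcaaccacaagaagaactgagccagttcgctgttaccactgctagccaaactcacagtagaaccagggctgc
Slfn9: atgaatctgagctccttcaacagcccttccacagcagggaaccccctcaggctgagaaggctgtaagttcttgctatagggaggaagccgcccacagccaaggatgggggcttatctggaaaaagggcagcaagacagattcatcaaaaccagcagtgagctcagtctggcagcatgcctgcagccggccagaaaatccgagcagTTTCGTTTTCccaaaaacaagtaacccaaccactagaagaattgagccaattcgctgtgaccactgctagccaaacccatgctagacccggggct
The core was the same 10 letters in both, and 246 identical bases were found on aligning the 2 sequences (82% of their length of 300). That core, on either strand, was present in 3.88% of promoters of the genes tested and in 15 of the 24 promoters of listed interferon-stimulated genes (62.5%). This likeness is of promoters, and the transcripts of both genes were not compared. Whether the counting could tell their reads apart was not tested, so the levels of the Schlafen genes are uncertain. Of the other Schlafen genes, whose values were looked at after those of Slfn8 and Slfn9, Slfn5 was at 42, 50.2 and 38.9 FPKM in Mef2c-labelled libraries, against 30.4, 37.5 and 30.1 FPKM in wild type (log2 difference 0.41, SE 0.12, adjusted p 0.0342). The Slfn5 call was lost without Mef2c-labelled replicate 1 or 2 or wild-type replicate 1 or 3 (adjusted p 0.075 to 0.138), and with median-of-ratios scaling (adjusted p 0.0761). Slfn1, Slfn2 and Slfn3 did not pass, at log2 differences of -0.34, -0.21 and -0.15.

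The largest falls included 3 genes of one TRIM family cluster on chromosome 7, whose products are ubiquitin ligases that restrict retroviruses or act in innate signalling. Trim12a (ENSMUSG00000066258, chromosome 7, 104299894 to 104315466) was at 0.013, 0 and 0.0673 FPKM in Mef2c-labelled libraries, against 23.9, 24.7 and 22.3 FPKM in wild type (log2 difference -4.58, SE 0.51, adjusted p 2.85e-05). Trim5 (104263386 to 104288094) was at 0.106, 0.0449 and 0.0412 FPKM in Mef2c-labelled libraries, against 14, 12.8 and 11.5 FPKM in wild type (log2 difference -3.69, SE 0.37, adjusted p 9.1e-06). Trim30d (104470014 to 104507849) was at 0.222, 0.2 and 0.0918 FPKM in Mef2c-labelled libraries, against 8.79, 11.5 and 11.5 FPKM in wild type (log2 difference -3.30, SE 0.37, adjusted p 3.18e-05). In all 3 the Mef2c-labelled libraries were close to 0 and the wild-type ones were not. Neighbours examined after these values were seen stayed well expressed. Trim12c was higher, at 33.5, 31.1 and 30 FPKM in Mef2c-labelled libraries, against 21.1, 22.7 and 23.9 FPKM in wild type (log2 difference 0.47, SE 0.07, adjusted p 0.000296). Trim34a was lower by less, at 7.69, 6.85 and 8.12 FPKM in Mef2c-labelled libraries, against 10.7, 13.4 and 11.1 FPKM in wild type (log2 difference -0.57, SE 0.09, adjusted p 0.000757). Trim30a did not pass, at 36.8, 38.7 and 35.4 FPKM in Mef2c-labelled libraries, against 32, 41.3 and 35 FPKM in wild type (log2 difference 0.04, SE 0.10, adjusted p 0.814). Since members of this cluster are close copies of each other, their separate levels are uncertain.

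Apobec3, a cytidine deaminase that restricts retroviruses, was at 15.2, 14 and 14.6 FPKM in Mef2c-labelled libraries, against 86, 48.3 and 56.1 FPKM in wild type (log2 difference -2.002, SE 0.44, adjusted p 0.00591). Single libraries of other groups were as low, among them Mef2d-labelled replicate 1 at 16.6 FPKM and HDAC2-labelled replicate 1 at 15.6 FPKM. Crabp2, a carrier of retinoic acid, was at 0.52, 0.294 and 0.162 FPKM in Mef2c-labelled libraries, against 29.9, 40 and 15.5 FPKM in wild type (log2 difference -4.39, SE 0.85, adjusted p 0.00284). Elsewhere Crabp2 was under 1 FPKM in all Mef2d-labelled and all Dyrk1-labelled libraries and varied between 0.151 and 41.6 FPKM in the others, so its level changed between libraries of 1 label. Cfd, complement factor D, was at 6.98, 0.0593 and 3.37 FPKM in Mef2c-labelled libraries, against 13.8, 13.4 and 13.4 FPKM in wild type. Its spread within the Mef2c-labelled group was wide (log2 difference -2.13, SE 0.69, adjusted p 0.0425), and the call was lost without Mef2c-labelled replicate 2 or 3, Mef2d-labelled replicate 1, Dyrk1-labelled replicate 2, HDAC1-labelled replicate 3, HDAC2-labelled replicate 3 or wild-type replicate 1 or 2 or 3 (adjusted p 0.0507 to 0.176). Hbb-bt, an adult beta-globin gene, was at 0.276, 0.0779 and 0.286 FPKM in Mef2c-labelled libraries, against 2.28, 13.7 and 33.3 FPKM in wild type (log2 difference -3.29, SE 0.82, adjusted p 0.0126). The Hbb-bt call was lost without wild-type replicate 3 (adjusted p 0.0743). The summed FPKM of 9 erythroid markers ran alongside, at 25.2, 35.3 and 63.6 in Mef2c-labelled libraries and 35.4, 188 and 403 in wild type, and the part of red cell RNA in the Hbb-bt difference was not tested.

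**Figure D2:**
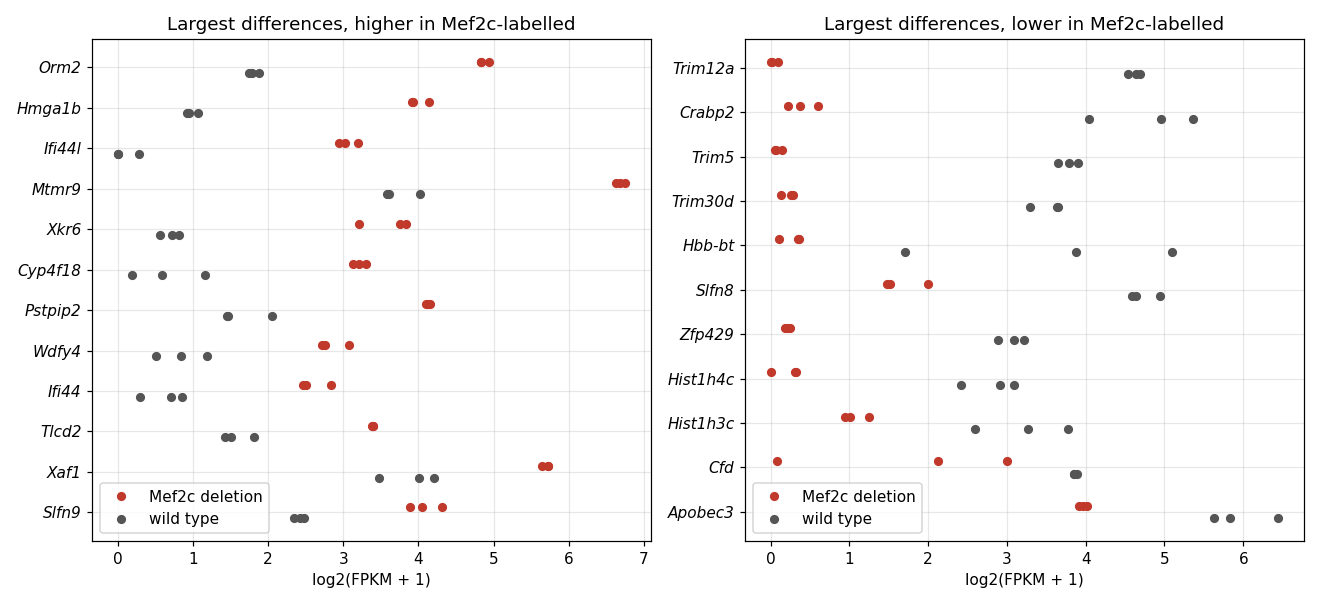
The 12 largest rises (left panel) and 11 of the 12 largest falls (right panel) by the naming rule, as log2(FPKM + 1) per library; in each row the upper points are the 3 Mef2c-labelled libraries and the lower points the 3 wild-type libraries. The groups do not overlap in any row, which the rule required, and the points of Trim12a, Trim5 and Trim30d in Mef2c-labelled libraries lie near 0.

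A pseudogene with no established role, Gm9625 on chromosome 13 (67810246 to 67811200), was named after its values were seen because the rule left out clone-like symbols. It was at 200.5, 241 and 228 FPKM in Mef2c-labelled libraries, against 1.07, 1.26 and 1.52 FPKM in wild type (log2 difference 6.62, SE 0.13, adjusted p 4.09e-14). Mef2d-labelled libraries were as high, at 216, 215 and 216 FPKM, while the 9 libraries of the other deletion groups were at 1.15 FPKM or less. Because a pseudogene can draw reads of its parent gene, the value is uncertain.

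Genes around Mef2c on chromosome 13 were also examined. Of 147 genes tested within 20 Mb of it, 37 passed, 27 higher and 10 lower, which is 25.2% against 18.9% of the genes elsewhere. Without Mef2c-labelled replicate 1, 19 passed (12.9%, against 9.65% elsewhere). With all libraries, 24.4% of the genes tested on the whole of chromosome 13 passed (113 of 464). The window around Mef2c thus did not stand out from its own chromosome. The shares of chromosomes 14 (28.1%) and 18 (26%) were higher than that of the window, and chromosome 19 had the lowest of the autosomes (10.6%). Zfp429, a zinc finger gene (67387905 to 67399819), was at 0.137, 0.155 and 0.19 FPKM in Mef2c-labelled libraries, against 6.37, 8.34 and 7.54 FPKM in wild type (log2 difference -2.85, SE 0.43, adjusted p 0.000412). Naip5, which senses bacterial flagellin (100211739 to 100246323), was at 8.53, 6.93 and 6.75 FPKM in Mef2c-labelled libraries, against 2.37, 3 and 2.45 FPKM in wild type (log2 difference 1.22, SE 0.13, adjusted p 2.35e-05). Its near-copy Naip6 was higher as well (log2 difference 0.90, SE 0.12, adjusted p 0.000159), and how the counting treated reads shared by the copies was not checked. Ercc6l2, linked to DNA repair, was at 19.4, 17 and 15.9 FPKM in Mef2c-labelled libraries, against 9.57, 9.74 and 9.04 FPKM in wild type (log2 difference 0.82, SE 0.10, adjusted p 8.32e-05). The zinc finger gene Zfp369 was at 10.7, 8.44 and 8.19 FPKM in Mef2c-labelled libraries, against 5.33, 5.27 and 4.15 FPKM in wild type (log2 difference 0.77, SE 0.12, adjusted p 0.000747). Marveld2, a tight junction protein gene, was at 4.12, 3.63 and 3.2 FPKM in Mef2c-labelled libraries, against 1.73, 0.903 and 2.03 FPKM in wild type (log2 difference 0.89, SE 0.21, adjusted p 0.0109). The Marveld2 call was lost without Mef2c-labelled replicate 1 (adjusted p 0.0511). Zfp429 was thus nearly silent in the Mef2c-labelled libraries while the other 5 genes just named were higher in them. Gm9625, given above, also lies within 20 Mb of Mef2c.

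The position of passing genes was described after the values were seen. Of all genes tested 1.9% passed with a difference above 1 on the log2 scale. In windows of 10 Mb, that from 50 to 60 Mb on chromosome 14, which holds the T cell receptor alpha segments and has many genes, had 19 such genes of 243 tested (7.82%). The window from 20 to 30 Mb on chromosome 13, which holds a cluster of histone genes, had 13 of 59 (22%), and that from 100 to 110 Mb on chromosome 7, which holds the Trim genes above, had 13 of 70 (18.6%). The neighbouring window on chromosome 7, from 90 to 100 Mb, had 4 of 41 (9.76%), among them Lrrc32, described below.

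Counts of the lists that follow are read against all genes tested, of which 12.9% rose and 6.06% fell with all libraries. Counts from other fits have other backgrounds. Without Mef2c-labelled replicate 1, 6.52% of all genes rose and 3.17% fell. Of the 12223 genes, 1107 rose and 1098 fell with median-of-ratios scaling, and 1660 rose and 894 fell with the B cell covariate. Of the genes listed for Treg identity, 2 of 23 rose and 4 fell (2 and 2 without Mef2c-labelled replicate 1), and Foxp3, Il2ra, Ctla4 and Ikzf2 were among the 17 that did not pass. Rises in the Treg identity list numbered 0 (wild-type replicate 3 left out) and 1 (Mef2c-labelled replicate 2 or wild-type replicate 1 left out). Lrrc32, which encodes GARP, the surface protein that holds latent TGF-beta on activated Treg, fell the most of them (ENSMUSG00000090958, chromosome 7, 98489283 to 98502181). It was at 17.9, 16.1 and 19.1 FPKM in Mef2c-labelled libraries, against 68.2, 81.6 and 70.4 FPKM in wild type. The highest Mef2c-labelled value was well under the lowest wild-type value (log2 difference -1.99, SE 0.17, adjusted p 1.3e-06), and the difference passed without Mef2c-labelled replicate 1 (adjusted p 1.69e-05). Socs2, a suppressor of cytokine signalling, was at 11, 11.4 and 12.5 FPKM in Mef2c-labelled libraries, against 15.8, 19.9 and 17.3 FPKM in wild type (log2 difference -0.56, SE 0.12, adjusted p 0.00489). Il2rb, the beta chain of the interleukin 2 receptor, was at 294, 313 and 291 FPKM in Mef2c-labelled libraries, against 382, 374 and 383 FPKM in wild type (log2 difference -0.34, SE 0.09, adjusted p 0.0137). The Il2rb call was lost without Mef2c-labelled replicate 1 or wild-type replicate 3 (adjusted p 0.0503 to 0.0527). Gpr83, a G protein-coupled receptor marking Treg, went the other way, at 48.9, 61 and 50.3 FPKM in Mef2c-labelled libraries, against 37.3, 37.7 and 34.6 FPKM in wild type (log2 difference 0.53, SE 0.13, adjusted p 0.0122). The Gpr83 call was lost without Mef2c-labelled replicate 2 or wild-type replicate 3 (adjusted p 0.0551 to 0.0565). Il2ra, the receptor chain by which Treg are often sorted, was at 137, 149 and 137 FPKM in Mef2c-labelled libraries, against 137, 145 and 129.5 FPKM in wild type (log2 difference 0.04, SE 0.09, adjusted p 0.795).

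Of effector Treg genes 4 of 29 rose and 8 fell, where 12.9% of all genes rose and 6.06% fell. Without Mef2c-labelled replicate 1 the counts were 1 and 4, where 6.52% of all genes rose and 3.17% fell. With median-of-ratios scaling they were 1 and 8, where 1107 of 12223 genes rose and 1098 fell. Ccr4, a chemokine receptor that directs Treg to skin and other tissues, was at 13.1, 14.9 and 12.5 FPKM in Mef2c-labelled libraries, against 25.2, 18.4 and 27.3 FPKM in wild type (log2 difference -0.75, SE 0.13, adjusted p 0.00136). Ccr8, another receptor of effector Treg, was at 19.9, 23.4 and 26.9 FPKM in Mef2c-labelled libraries, against 31, 38.1 and 38.8 FPKM in wild type (log2 difference -0.60, SE 0.15, adjusted p 0.012). The Ccr8 call was lost without Mef2c-labelled replicate 1 or wild-type replicate 3 (adjusted p 0.0583 to 0.0656). Lgals1, which encodes galectin 1, a suppressive lectin, was at 160.1, 139.8 and 191 FPKM in Mef2c-labelled libraries, against 256, 222 and 303 FPKM in wild type (log2 difference -0.67, SE 0.15, adjusted p 0.00618). Cxcr3, the chemokine receptor of Th1-like Treg, rose, at 39.3, 39.2 and 42.3 FPKM in Mef2c-labelled libraries, against 22.8, 20.9 and 29.6 FPKM in wild type (log2 difference 0.71, SE 0.18, adjusted p 0.0134). Irf4, a factor that drives effector Treg differentiation, was at 19.6, 22.3 and 21.1 FPKM in Mef2c-labelled libraries, against 28.9, 26.4 and 28.6 FPKM in wild type (log2 difference -0.40, SE 0.07, adjusted p 0.00224). For Ccr4, Ccr8, Lgals1 and Irf4 every Mef2c-labelled value was under every wild-type value, and for Cxcr3 the reverse held. The number of falls was 4 (Mef2c-labelled replicate 1 or wild-type replicate 3 left out). The number of rises was 1 (Mef2c-labelled replicate 1 or 2 or wild-type replicate 3 left out) and 2 (Mef2c-labelled replicate 3 or wild-type replicate 1 or 2 left out). In this list the median log2 difference was -0.04, against 0.04 for all genes.

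Among genes of resting and central T cells 1 of 17 rose and 3 fell (1 and 3 without Mef2c-labelled replicate 1, and 0 and 4 with median-of-ratios scaling). Rises in the resting and central T cell list numbered 0 (Mef2c-labelled replicate 2 or 3 or wild-type replicate 1 or 3 left out). Besides Klf2, Igfbp4, a binding protein of insulin-like growth factors found in naive T cells, was at 62.2, 71.4 and 68.5 FPKM in Mef2c-labelled libraries, against 111, 131 and 103 FPKM in wild type (log2 difference -0.75, SE 0.15, adjusted p 0.00421). Lef1, a factor of naive T cells that acts with beta-catenin, was at 52.8, 52.2 and 51.9 FPKM in Mef2c-labelled libraries, against 66.9, 68.5 and 64.9 FPKM in wild type (log2 difference -0.35, SE 0.08, adjusted p 0.01). Il7r, the interleukin 7 receptor chain of long-lived T cells, was at 56.6, 66.4 and 70.8 FPKM in Mef2c-labelled libraries, against 46.8, 48.8 and 50.9 FPKM in wild type (log2 difference 0.39, SE 0.12, adjusted p 0.031). The Il7r call was lost without Mef2c-labelled replicate 2 or 3 or wild-type replicate 1 or 2 or 3 (adjusted p 0.0578 to 0.0999), and with median-of-ratios scaling (adjusted p 0.0742).

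Of Th1 genes 5 of 17 rose and 0 fell (4 and 1 without Mef2c-labelled replicate 1, and 4 and 1 with median-of-ratios scaling). Il18r1, a chain of the receptor for interleukin 18, rose the most of them, at 52.3, 48.3 and 43.6 FPKM in Mef2c-labelled libraries, against 22.4, 19.9 and 19.8 FPKM in wild type (log2 difference 1.18, SE 0.12, adjusted p 8e-06). Il18rap, the second chain of the interleukin 18 receptor, was at 8.93, 7.45 and 6.87 FPKM in Mef2c-labelled libraries, against 4.9, 3.35 and 5.1 FPKM in wild type (log2 difference 0.69, SE 0.23, adjusted p 0.0444). The Il18rap call was lost without Mef2c-labelled replicate 1 or 2 or 3, Mef2d-labelled replicate 3, Dyrk1-labelled replicate 2, HDAC1-labelled replicate 1, HDAC2-labelled replicate 1 or wild-type replicate 1 or 2 or 3 (adjusted p 0.0512 to 0.159), and with median-of-ratios scaling (adjusted p 0.0635), and with the B cell covariate (adjusted p 0.0765). The median log2 difference of the list was 0.34, and 0.28 without Mef2c-labelled replicate 1.

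Of genes of follicular T cells 7 of 13 rose and 1 fell (4 and 0 without Mef2c-labelled replicate 1). Falls in the follicular T cell list numbered 0 (Mef2c-labelled replicate 1 or 3 or wild-type replicate 1 or 3 left out). Cd40lg, the ligand by which T cells help B cells, was at 31.3, 29.5 and 30.9 FPKM in Mef2c-labelled libraries, against 19.4, 20.6 and 19.8 FPKM in wild type (log2 difference 0.59, SE 0.07, adjusted p 4.49e-05). Cxcr5, the chemokine receptor that leads cells into B cell follicles and is also carried by B cells, was at 18.5, 21.4 and 17.8 FPKM in Mef2c-labelled libraries, against 11, 10.6 and 11.1 FPKM in wild type (log2 difference 0.76, SE 0.15, adjusted p 0.00379). Both passed without Mef2c-labelled replicate 1 (adjusted p 0.00047 and 0.0138). Il4, the Th2 cytokine that follicular T cells also make, was at 3.85, 1.9 and 3.15 FPKM in Mef2c-labelled libraries, against 1.12, 1.33 and 1.43 FPKM in wild type (log2 difference 0.76, SE 0.19, adjusted p 0.0116). The Il4 call was lost without Mef2c-labelled replicate 1 (adjusted p 0.0656). Tox2, a chromatin factor of follicular T cells, was at 7.63, 7.36 and 7.77 FPKM in Mef2c-labelled libraries, against 5.51, 4.3 and 5.51 FPKM in wild type (log2 difference 0.50, SE 0.13, adjusted p 0.0191). The Tox2 call was lost without Mef2c-labelled replicate 1 or wild-type replicate 2 (adjusted p 0.0615 to 0.0659). With the B cell marker mean as a covariate 9 rose and 1 fell. The median log2 difference of the 24 B cell markers was 0.70, with 1 of 24 passing and the summed FPKM given above ordered otherwise, and their part in the list was not tested in another way.

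Of Th2 genes 3 of 10 rose and 1 fell (1 and 1 without Mef2c-labelled replicate 1). Falls in the Th2 list numbered 2 (wild-type replicate 1 left out). Il10ra, a chain of the interleukin 10 receptor, was at 41, 39.6 and 47.2 FPKM in Mef2c-labelled libraries, against 24.2, 25.8 and 24.2 FPKM in wild type (log2 difference 0.76, SE 0.10, adjusted p 0.000157). No Mef2c-labelled value of Il10ra came near the wild-type ones. Maf, a factor of Th2 and follicular T cells, was at 37.3, 39.5 and 36.5 FPKM in Mef2c-labelled libraries, against 25.7, 26.1 and 22.7 FPKM in wild type (log2 difference 0.59, SE 0.19, adjusted p 0.042). The Maf call was lost without Mef2c-labelled replicate 1 or 2 or 3, Mef2d-labelled replicate 1 or 2 or 3, HDAC1-labelled replicate 1, HDAC2-labelled replicate 1 or wild-type replicate 1 or 2 or 3 (adjusted p 0.0514 to 0.149), and with median-of-ratios scaling (adjusted p 0.0681). Of Th17 genes 1 of 9 rose and 0 fell (0 and 0 without Mef2c-labelled replicate 1, and 0 and 0 with median-of-ratios scaling). With all libraries the share of rises, 11.1%, was near the 12.9% of all genes tested. Rises in the Th17 and RORgt list numbered 0 (Mef2c-labelled replicate 1 or 2 or 3 or wild-type replicate 3 left out). The factor Rora was the 1 that rose, at 7.15, 6.78 and 6.66 FPKM in Mef2c-labelled libraries, against 5.52, 5.03 and 3.79 FPKM in wild type (log2 difference 0.46, SE 0.14, adjusted p 0.0363). The Rora call was lost without Mef2c-labelled replicate 1 or 2 or 3 or wild-type replicate 3 (adjusted p 0.061 to 0.18), and with median-of-ratios scaling (adjusted p 0.0633).

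Of chemokine receptors 4 of 19 rose and 2 fell (3 and 1 without Mef2c-labelled replicate 1), with Cxcr3 and Cxcr5 higher and Ccr4 and Ccr8 lower as given above. Falls in the chemokine receptors list numbered 1 (Mef2c-labelled replicate 1 or wild-type replicate 3 left out). Ccr9, a gut-homing receptor, was at 6.99, 6.92 and 8.19 FPKM in Mef2c-labelled libraries, against 5.58, 3.42 and 4.42 FPKM in wild type (log2 difference 0.63, SE 0.20, adjusted p 0.0429). The Ccr9 call was lost without Mef2c-labelled replicate 1 or 2 or 3, Mef2d-labelled replicate 1 or 2 or 3, HDAC2-labelled replicate 1 or wild-type replicate 2 or 3 (adjusted p 0.0507 to 0.135), and with median-of-ratios scaling (adjusted p 0.0586), and with the B cell covariate (adjusted p 0.0562). The number of rises was 2 (Mef2c-labelled replicate 2 or 3 or wild-type replicate 3 left out). Of integrins and selectin ligands 4 of 18 rose and 2 fell (0 and 1 without Mef2c-labelled replicate 1). Falls in the integrins and selectin ligands list numbered 1 (Mef2c-labelled replicate 1 or 3 or wild-type replicate 1 or 3 left out). Itgb1 and Itga4, the chains of the integrin VLA-4, were at 164, 175 and 152 FPKM and 58.4, 46.1 and 46.7 FPKM in Mef2c-labelled libraries, against 119, 92.4 and 116 FPKM and 38.7, 36.2 and 27.1 FPKM in wild type (log2 difference 0.59, SE 0.15, adjusted p 0.0166 and log2 difference 0.56, SE 0.13, adjusted p 0.0103). The Itgb1 call was lost without Mef2c-labelled replicate 1 or 2 or wild-type replicate 2 (adjusted p 0.0543 to 0.0587). The Itga4 call was lost without Mef2c-labelled replicate 1 or wild-type replicate 3 (adjusted p 0.0558 to 0.0583). Selplg, the P-selectin ligand backbone, was at 176, 197 and 196 FPKM in Mef2c-labelled libraries, against 229, 242 and 233 FPKM in wild type (log2 difference -0.30, SE 0.05, adjusted p 0.00141). Fut7, which adds the sugar that selectins bind, was at 3.27, 3.77 and 3.07 FPKM in Mef2c-labelled libraries, against 5.28, 3.9 and 5.51 FPKM in wild type (log2 difference -0.42, SE 0.12, adjusted p 0.0256). The Fut7 call was lost without Mef2c-labelled replicate 1 or 3 or wild-type replicate 1 or 3 (adjusted p 0.0757 to 0.124), and with the B cell covariate (adjusted p 0.0506). Rises in the integrin list numbered 0 (Mef2c-labelled replicate 1 left out) and 2 (Mef2c-labelled replicate 2 or wild-type replicate 2 or 3 left out).

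Of costimulatory and TNF receptors 5 of 17 rose and 1 fell (4 and 0 without Mef2c-labelled replicate 1, and 4 and 3 with median-of-ratios scaling), and rises numbered 3 (Mef2c-labelled replicate 3 or wild-type replicate 1 or 3 left out). Falls in the costimulatory and TNF receptors list numbered 0 (Mef2c-labelled replicate 1 or wild-type replicate 1 or 3 left out). Cd226, an activating receptor that competes with TIGIT for its ligands, was at 42.9, 39.4 and 37.4 FPKM in Mef2c-labelled libraries, against 24.9, 24.4 and 19.4 FPKM in wild type (log2 difference 0.78, SE 0.14, adjusted p 0.00131). The lowest Mef2c-labelled value of Cd226 was well above the highest wild-type value. Tnfrsf1a, a TNF receptor, was at 19.8, 18.8 and 18.5 FPKM in Mef2c-labelled libraries, against 13.9, 15.3 and 12.3 FPKM in wild type (log2 difference 0.44, SE 0.08, adjusted p 0.00148). Cd27 was higher (log2 difference 0.41, SE 0.12, adjusted p 0.0285). The Cd27 call was lost without Mef2c-labelled replicate 1 or 3 or wild-type replicate 1 or 3 (adjusted p 0.0808 to 0.127). Icos, the costimulator of effector and follicular cells, was lower (log2 difference -0.40, SE 0.11, adjusted p 0.0244). The Icos call was lost without Mef2c-labelled replicate 1 or 3 or wild-type replicate 1 or 3 (adjusted p 0.0525 to 0.121). Of inhibitory receptors 2 of 14 rose and 1 fell (1 and 1 without Mef2c-labelled replicate 1, and 1 and 1 with median-of-ratios scaling). With all libraries these shares, 14.3% and 7.14%, were near the 12.9% and 6.06% of all genes tested. Rises in the inhibitory receptors list numbered 1 (Mef2c-labelled replicate 1 or 2 or wild-type replicate 3 left out). Havcr2, which encodes TIM-3, was at 1.5, 1.27 and 1.35 FPKM in Mef2c-labelled libraries, against 2.78, 2.18 and 2.2 FPKM in wild type (log2 difference -0.51, SE 0.12, adjusted p 0.00854). Btla was at 43.6, 40.4 and 41.6 FPKM in Mef2c-labelled libraries, against 33.6, 37.3 and 33.2 FPKM in wild type (log2 difference 0.27, SE 0.06, adjusted p 0.00894). Cd101 was higher (log2 difference 0.34, SE 0.09, adjusted p 0.0192). The Cd101 call was lost without Mef2c-labelled replicate 1 or 2 or wild-type replicate 2 or 3 (adjusted p 0.0519 to 0.0842), and with median-of-ratios scaling (adjusted p 0.0626).

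Of the pathway lists, those of the cell cycle had the highest shares of falls, and their number depended on single libraries. Of 25 genes of mitosis and G2/M 15 fell and 0 rose, with a median log2 difference of -0.61. Ube2c, the ubiquitin-conjugating enzyme of the anaphase-promoting complex, was at 10.5, 8.37 and 12.9 FPKM in Mef2c-labelled libraries, against 20.9, 14.7 and 31.6 FPKM in wild type (log2 difference -0.96, SE 0.24, adjusted p 0.0138). Ccnb2, a mitotic cyclin, was at 11.7, 11.3 and 15 FPKM in Mef2c-labelled libraries, against 26.8, 16.7 and 33.2 FPKM in wild type (log2 difference -0.92, SE 0.23, adjusted p 0.0137). Birc5, which encodes survivin of the chromosomal passenger complex, was at 5.14, 5.16 and 6.67 FPKM in Mef2c-labelled libraries, against 10.4, 7.3 and 14.6 FPKM in wild type (log2 difference -0.78, SE 0.20, adjusted p 0.0169). Ccna2, the cyclin of S phase and early mitosis, was at 10.7, 11.6 and 12.1 FPKM in Mef2c-labelled libraries, against 20.9, 13.6 and 27.3 FPKM in wild type (log2 difference -0.74, SE 0.19, adjusted p 0.0157). The Ube2c call was lost without Mef2c-labelled replicate 2 or wild-type replicate 3 (adjusted p 0.0595 to 0.0773). The Ccnb2 call was lost without Mef2c-labelled replicate 1 or 2 or wild-type replicate 3 (adjusted p 0.05 to 0.0792). The Birc5 call was lost without Mef2c-labelled replicate 1 or 2 or wild-type replicate 3 (adjusted p 0.0573 to 0.0941). The Ccna2 call was lost without Mef2c-labelled replicate 1 or wild-type replicate 3 (adjusted p 0.0619 to 0.0864). In each of the 4, wild-type replicate 2 was nearest to the Mef2c-labelled values. Relative to the wild-type mean, the median of the 25 genes was -0.69, -0.61 and -0.56 in the Mef2c-labelled libraries and 0.12, -0.51 and 0.40 in wild type. Wild-type replicate 2 thus lay near the Mef2c-labelled libraries and apart from the other 2 of its own group. Without it 24 of the 25 fell, without wild-type replicate 3 the count was 0, without wild-type replicate 1 it was 4, and without Mef2c-labelled replicate 1, 2 or 3 it was 1, 3 and 10. At an unadjusted p under 0.05 the count was 23 with all libraries and 13 without wild-type replicate 3. When limma was run on the 6 libraries alone, 0 of the 25 passed after adjustment and 20 before it.

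The promoter of Ccnb2 is shown because its letters are of the kind shared by this list. It is the RefSeq sequence at chr9:70421505-70421804 on the minus strand of GRCm38.p6. Capitals mark the cell cycle homology region, TTTGAA, which is found 167 and 4 bases before the start, and CCAAT boxes, which begin 87, 54 and 21 bases before it. None of the 5 overlaps another.
Ccnb2: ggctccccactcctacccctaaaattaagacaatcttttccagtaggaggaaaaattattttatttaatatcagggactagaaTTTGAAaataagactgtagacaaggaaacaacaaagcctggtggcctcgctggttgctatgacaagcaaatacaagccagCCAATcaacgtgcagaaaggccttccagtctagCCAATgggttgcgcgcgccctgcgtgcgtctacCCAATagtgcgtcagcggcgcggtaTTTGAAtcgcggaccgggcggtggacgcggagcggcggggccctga
TTTGAA on either strand was present in 15 of the 21 promoters of the list that are in the table (71.4%) and in 14.5% of those of all genes tested. CCAAT was present in 18 of the 21 (85.7%), against 42.9%.

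Of 24 genes of replication and S phase 8 fell and 0 rose, with a median log2 difference of -0.35, and 13 fell with median-of-ratios scaling. Mcm2, a subunit of the replicative helicase, was at 29.2, 34.9 and 32.1 FPKM in Mef2c-labelled libraries, against 48.2, 38.8 and 54.5 FPKM in wild type (log2 difference -0.53, SE 0.11, adjusted p 0.00377), and passed without Mef2c-labelled replicate 1 (adjusted p 0.024). Rrm2, the ribonucleotide reductase subunit that supplies DNA precursors, was at 26.3, 26 and 31.2 FPKM in Mef2c-labelled libraries, against 49.5, 33.1 and 62 FPKM in wild type (log2 difference -0.73, SE 0.18, adjusted p 0.0138). The Rrm2 call was lost without Mef2c-labelled replicate 1 or wild-type replicate 3 (adjusted p 0.0563 to 0.0782). Uhrf1, which maintains DNA methylation, and Tyms, thymidylate synthase, were lower (log2 difference -0.57, SE 0.17, adjusted p 0.035 and log2 difference -0.50, SE 0.14, adjusted p 0.0212). The Uhrf1 call was lost without Mef2c-labelled replicate 1 or 2 or 3 or wild-type replicate 1 or 3 (adjusted p 0.0548 to 0.181). The Tyms call was lost without Mef2c-labelled replicate 1 or 2 or wild-type replicate 1 or 3 (adjusted p 0.0652 to 0.118). Falls numbered 1 (Mef2c-labelled replicate 1 or wild-type replicate 3 left out), 2 (Mef2c-labelled replicate 2 left out), 3 (wild-type replicate 1 left out), 5 (Mef2c-labelled replicate 3 left out) and 20 (wild-type replicate 2 left out). Relative to the wild-type mean, the median of the 24 genes was -0.43, -0.41 and -0.30 in Mef2c-labelled libraries and 0.04, -0.31 and 0.29 in wild type.

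**Figure D3:**
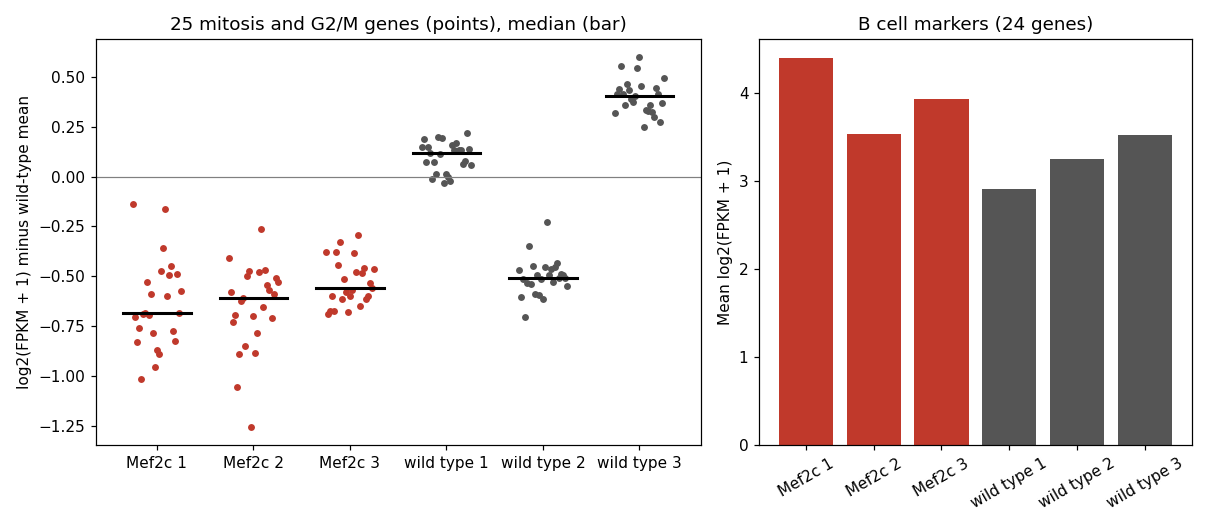
Left, the 25 genes of mitosis and G2/M as log2(FPKM + 1) minus the wild-type mean in each of the 3 Mef2c-labelled and 3 wild-type libraries, with the median as a bar; right, the mean log2(FPKM + 1) of the B cell markers in the same libraries. Wild-type replicate 2, with a median of -0.51, sits with the Mef2c-labelled libraries, and Mef2c-labelled replicate 1 has the highest B cell mean, 4.396.

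Histone genes of the Hist1h clusters were lower whichever library was left out. This group was taken after the values were seen. Of 38 Hist1h genes tested 21 fell and 0 rose, and 15 to 26 fell on leaving out any of the 18 libraries. Over all genes tested 6.06% fell. Their summed level was 54.4, 45.03 and 47.4 FPKM in Mef2c-labelled libraries and 134, 97.7 and 176 FPKM in wild type. Every Mef2c-labelled sum was below every wild-type sum. Sums were similarly low in Mef2d-labelled (43.48, 61.03 and 51.79 FPKM) and HDAC2-labelled libraries (47.01, 54.13 and 56.27 FPKM). They were higher in HDAC1-labelled (83.03, 92.3 and 103.2 FPKM) and Dyrk1-labelled libraries (136.2, 130.2 and 132.9 FPKM). Hist1h4c was at 0.245, 0 and 0.254 FPKM in Mef2c-labelled libraries, against 7.49, 4.33 and 6.55 FPKM in wild type (log2 difference -2.59, SE 0.20, adjusted p 6.15e-07) and Hist1h3c at 1.39, 1.01 and 0.924 FPKM in Mef2c-labelled libraries, against 8.63, 5.04 and 12.7 FPKM in wild type (log2 difference -2.14, SE 0.30, adjusted p 0.000231). Replication-dependent histone messages mostly lack a poly(A) tail, so their values in an mRNA library reflect an unknown part of the pool, and near-identical copies make single histone genes uncertain.

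Of inhibitors of the cycle and p53 targets 4 of 24 rose and 0 fell (2 and 0 without Mef2c-labelled replicate 1, and 2 and 0 with median-of-ratios scaling). The share of rises, 16.7%, was near the 12.9% of all genes tested. Rbl2, which encodes p130, the retinoblastoma relative of quiescent cells, was at 55, 58.5 and 53.2 FPKM in Mef2c-labelled libraries, against 29.2, 28 and 26.8 FPKM in wild type (log2 difference 0.96, SE 0.08, adjusted p 1.23e-06). All Mef2c-labelled values were well above wild type, and the call held without Mef2c-labelled replicate 1 (adjusted p 1.56e-05). Mdm2, the ubiquitin ligase of p53, was at 36.1, 32.8 and 34 FPKM in Mef2c-labelled libraries, against 28, 29.1 and 28.7 FPKM in wild type (log2 difference 0.25, SE 0.05, adjusted p 0.00209). Ccng2 and Ccng1, cyclin G genes, were higher (log2 difference 0.21, SE 0.06, adjusted p 0.0199 and log2 difference 0.28, SE 0.09, adjusted p 0.0469). The Ccng2 call was lost without Mef2c-labelled replicate 1 or wild-type replicate 1 or 3 (adjusted p 0.0594 to 0.0857), and with median-of-ratios scaling (adjusted p 0.0509). The Ccng1 call was lost without Mef2c-labelled replicate 1 or 2, Mef2d-labelled replicate 1 or 3, HDAC1-labelled replicate 1 or 2 or 3, HDAC2-labelled replicate 1 or 2 or 3 or wild-type replicate 1 or 2 or 3 (adjusted p 0.0515 to 0.174), and with median-of-ratios scaling (adjusted p 0.129). Rises numbered 2 (Mef2c-labelled replicate 1 or wild-type replicate 3 left out). In the BCL2 family of apoptosis regulators 0 of 14 rose and 2 fell (0 and 0 without Mef2c-labelled replicate 1), the falls being Bcl2l11 (log2 difference -0.30, SE 0.08, adjusted p 0.0147), which encodes the killer protein BIM, and Bak1 (log2 difference -0.25, SE 0.08, adjusted p 0.035). Rises in the BCL2 family list numbered 1 (wild-type replicate 2 left out). Falls in the BCL2 family list numbered 0 (Mef2c-labelled replicate 1 left out) and 1 (Mef2c-labelled replicate 2 or wild-type replicate 3 left out). The Bcl2l11 call was lost without Mef2c-labelled replicate 1 (adjusted p 0.06) and the Bak1 call without Mef2c-labelled replicate 1 or 2 or wild-type replicate 3 (adjusted p 0.0996 to 0.177).

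Of interferon-stimulated genes 10 of 31 rose and 1 fell (7 and 1 without Mef2c-labelled replicate 1), with a median log2 difference of 0.30. Falls in the interferon-stimulated list numbered 3 (wild-type replicate 1 left out). Besides Ifi44 and Xaf1, Irgm2, an interferon-inducible GTPase that acts against intracellular pathogens, was at 34.7, 30.9 and 29.2 FPKM in Mef2c-labelled libraries, against 15.1, 17.1 and 15.6 FPKM in wild type (log2 difference 0.95, SE 0.14, adjusted p 0.000467). Oasl2, of the oligoadenylate synthetase family, fell, at 0.481, 0.263 and 0.338 FPKM in Mef2c-labelled libraries, against 2.39, 4.81 and 6.34 FPKM in wild type (log2 difference -1.95, SE 0.25, adjusted p 0.000115). The values of Oas1a, looked at after those of Oasl2, overlapped, at 13.3, 13.5 and 11.3 FPKM in Mef2c-labelled libraries, against 7.51, 13.3 and 10.9 FPKM in wild type (log2 difference 0.27, SE 0.20, adjusted p 0.363). With median-of-ratios scaling 9 rose and 1 fell. Isg15, Mx1 and Irf7, commonly taken as signs of an interferon response, were among the 20 that did not pass. Isg15 was at 39, 34.9 and 35.4 FPKM in Mef2c-labelled libraries, against 18.5, 43.1 and 40.2 FPKM in wild type (log2 difference 0.18, SE 0.24, adjusted p 0.633), and Irf7 at 38, 37.3 and 37.5 FPKM in Mef2c-labelled libraries, against 18.7, 41.4 and 37.3 FPKM in wild type (log2 difference 0.28, SE 0.23, adjusted p 0.429).

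Of genes of MHC class I and antigen processing 5 of 16 rose and 0 fell (3 and 0 without Mef2c-labelled replicate 1, and 3 and 0 with median-of-ratios scaling). H2-Q6 and H2-Q7, nonclassical class I genes, were at 559.7, 434 and 497 FPKM and 422, 329 and 382 FPKM in Mef2c-labelled libraries, against 251, 302 and 257 FPKM and 212, 259 and 212 FPKM in wild type (log2 difference 0.87, SE 0.13, adjusted p 0.000326 and log2 difference 0.73, SE 0.12, adjusted p 0.00102). They are near-copies, so their separate levels are uncertain. H2-T22 was at 118, 116 and 122 FPKM in Mef2c-labelled libraries, against 89.6, 99.3 and 103 FPKM in wild type (log2 difference 0.29, SE 0.06, adjusted p 0.00341). Tap1, which carries peptides into the endoplasmic reticulum, was higher by less (log2 difference 0.20, SE 0.06, adjusted p 0.0315). The Tap1 call was lost without Mef2c-labelled replicate 1 or 2 or 3 or wild-type replicate 1 (adjusted p 0.0568 to 0.138), and with median-of-ratios scaling (adjusted p 0.104). Rises numbered 3 (Mef2c-labelled replicate 1 or 2 or 3 or wild-type replicate 1 left out).

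Of immediate early genes 3 of 20 rose and 1 fell (1 and 1 without Mef2c-labelled replicate 1, and 1 and 1 with median-of-ratios scaling), and rises numbered 0 (wild-type replicate 3 left out) and 1 (Mef2c-labelled replicate 1 or 2 or wild-type replicate 1 left out). With all libraries the shares, 15% and 5%, were near the 12.9% and 6.06% of all genes tested. Falls in the immediate early list numbered 0 (Mef2c-labelled replicate 2 or wild-type replicate 3 left out). Fosb, an AP-1 subunit, was at 20.2, 11.9 and 17 FPKM in Mef2c-labelled libraries, against 35.1, 39.7 and 38 FPKM in wild type (log2 difference -1.18, SE 0.31, adjusted p 0.0177). The Fosb call was lost without Mef2c-labelled replicate 2 or wild-type replicate 3 (adjusted p 0.0594 to 0.0731). Fos, looked at after Fosb, was at 86.1, 52.7 and 80.9 FPKM in Mef2c-labelled libraries, against 119, 150.4 and 129 FPKM in wild type. Its groups did not overlap and it did not pass (log2 difference -0.88, SE 0.35, adjusted p 0.0963), although it passed without Dyrk1-labelled replicate 2 or 3 (adjusted p 0.0172 to 0.0325). Btg2, an antiproliferative gene, was at 91.5, 91.5 and 93.9 FPKM in Mef2c-labelled libraries, against 64.1, 80.7 and 56 FPKM in wild type (log2 difference 0.47, SE 0.11, adjusted p 0.0109). The Btg2 call was lost without wild-type replicate 3 (adjusted p 0.0616). Egr2 (log2 difference 0.54, SE 0.17, adjusted p 0.0395) and Fosl2 (log2 difference 0.30, SE 0.10, adjusted p 0.0427) were higher, but these calls depended on single libraries. The Egr2 call was lost without Mef2c-labelled replicate 1 or 2 or 3, Mef2d-labelled replicate 3 or wild-type replicate 1 or 3 (adjusted p 0.0502 to 0.117), and with median-of-ratios scaling (adjusted p 0.0567). The Fosl2 call was lost without Mef2c-labelled replicate 1 or 2, Mef2d-labelled replicate 1, HDAC1-labelled replicate 1 or 2 or 3, HDAC2-labelled replicate 1 or 2 or 3 or wild-type replicate 1 or 3 (adjusted p 0.0522 to 0.155), and with median-of-ratios scaling (adjusted p 0.0697), and with the B cell covariate (adjusted p 0.0738). Of NFAT and NF-kB targets 2 of 18 rose and 0 fell (1 and 0 without Mef2c-labelled replicate 1). The 11.1% that rose was near the 12.9% of all genes tested. Rises in the NFAT and NF-kB targets list numbered 1 (Mef2c-labelled replicate 1 or 2 or wild-type replicate 1 left out). Cd83, a marker of activation, was at 41.6, 41.4 and 43 FPKM in Mef2c-labelled libraries, against 32, 31.3 and 34.6 FPKM in wild type (log2 difference 0.35, SE 0.08, adjusted p 0.00677). Bcl3, a partner of NF-kB, was also higher (log2 difference 0.27, SE 0.07, adjusted p 0.0186). The Bcl3 call was lost without Mef2c-labelled replicate 1 or 2 or wild-type replicate 1 (adjusted p 0.0579 to 0.0841).

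Of ribosomal protein genes 0 of 43 rose and 8 fell (0 and 3 without Mef2c-labelled replicate 1, and 0 and 15 with median-of-ratios scaling). Rpl30, of the large subunit (ENSMUSG00000058600, chromosome 15, 34440505 to 34443640), was at 165, 143 and 173 FPKM in Mef2c-labelled libraries, against 592, 559.9 and 600.5 FPKM in wild type (log2 difference -1.86, SE 0.08, adjusted p 3.79e-10). Rplp0, which encodes the stalk protein, was at 1207, 1432 and 1391 FPKM in Mef2c-labelled libraries, against 2682, 2512 and 3000.0 FPKM in wild type (log2 difference -1.02, SE 0.09, adjusted p 1.42e-06). Rpl15 was at 315, 318 and 369.9 FPKM in Mef2c-labelled libraries, against 436, 461 and 471 FPKM in wild type (log2 difference -0.45, SE 0.10, adjusted p 0.00736). For Rpl30 and Rplp0 the highest Mef2c-labelled value was well under the lowest wild-type value, and for Rpl15 the distance was smaller. Rpl3 was at 525, 572 and 558 FPKM in Mef2c-labelled libraries, against 1135, 789.9 and 851 FPKM in wild type (log2 difference -0.73, SE 0.18, adjusted p 0.0129). The Rpl3 call was lost without Mef2c-labelled replicate 1 or wild-type replicate 1 (adjusted p 0.0527 to 0.0594). In 26 of the 43 all Mef2c-labelled values lay under all wild-type values, where 12.8% of all genes tested did so. Falls numbered 3 (Mef2c-labelled replicate 1 or wild-type replicate 1 left out), 4 (wild-type replicate 3 left out) and 5 (Mef2c-labelled replicate 2 left out). Ribosomal protein genes have many processed pseudogenes, so reads of 1 gene could be lost or counted elsewhere, and these levels are uncertain. Of the 12 mitochondrially encoded genes tested limma called 0 against wild type (2 at an unadjusted p under 0.05), and 5 were higher with the B cell covariate. Against the other 4 deletion groups 5 of the 12 were higher.

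Of glycolysis genes 2 of 22 rose and 4 fell (1 and 1 without Mef2c-labelled replicate 1, and 1 and 7 with median-of-ratios scaling). Rises in the glycolysis list numbered 1 (Mef2c-labelled replicate 1 or 2 or wild-type replicate 1 or 2 left out). Slc2a3, the glucose transporter GLUT3, was at 22.3, 22.9 and 20.2 FPKM in Mef2c-labelled libraries, against 13.2, 13.1 and 13.3 FPKM in wild type (log2 difference 0.68, SE 0.08, adjusted p 5.1e-05), and passed without Mef2c-labelled replicate 1 (adjusted p 0.000506). Pkm (log2 difference -0.37, SE 0.09, adjusted p 0.0131) and Ldha (log2 difference -0.35, SE 0.09, adjusted p 0.015), the last enzymes of the path, were lower, and so was Pgk1 (log2 difference -0.35, SE 0.10, adjusted p 0.031). The Pkm call was lost without Mef2c-labelled replicate 1 or wild-type replicate 3 (adjusted p 0.0583 to 0.0735). The Ldha call was lost without Mef2c-labelled replicate 1 or wild-type replicate 3 (adjusted p 0.078 to 0.0818). The Pgk1 call was lost without Mef2c-labelled replicate 1 or 3 or wild-type replicate 1 or 3 (adjusted p 0.0607 to 0.159). Falls in the list numbered 1 (Mef2c-labelled replicate 1 or wild-type replicate 3 left out) and 9 (wild-type replicate 2 left out). Of oxidative phosphorylation genes 0 of 33 rose and 3 fell (0 and 1 without Mef2c-labelled replicate 1, and 0 and 8 with median-of-ratios scaling), and falls numbered 1 (Mef2c-labelled replicate 1 or 2 or wild-type replicate 3 left out) and 5 (wild-type replicate 2 left out). Sdhd, a subunit of complex II, was at 42.5, 38.1 and 45.1 FPKM in Mef2c-labelled libraries, against 56.7, 51.8 and 67.1 FPKM in wild type (log2 difference -0.47, SE 0.10, adjusted p 0.00464). Cycs, cytochrome c, and Ndufa9, of complex I, were lower (log2 difference -0.38, SE 0.12, adjusted p 0.0403 and log2 difference -0.20, SE 0.06, adjusted p 0.0318). The Cycs call was lost without Mef2c-labelled replicate 1 or 2, HDAC1-labelled replicate 1, HDAC2-labelled replicate 1 or 3 or wild-type replicate 2 or 3 (adjusted p 0.0504 to 0.166). The Ndufa9 call was lost without Mef2c-labelled replicate 1 or 2 or wild-type replicate 1 or 3 (adjusted p 0.065 to 0.158). Of genes of cholesterol and lipid synthesis 4 of 23 rose and 1 fell (2 and 1 without Mef2c-labelled replicate 1, and 2 and 1 with median-of-ratios scaling). Scd2, a fatty acid desaturase, was lower (log2 difference -0.44, SE 0.08, adjusted p 0.00154). Sqle, squalene epoxidase, was higher (log2 difference 0.25, SE 0.07, adjusted p 0.0293). The Sqle call was lost without Mef2c-labelled replicate 1 or 2 or 3 or wild-type replicate 1 or 2 (adjusted p 0.0561 to 0.101), and with median-of-ratios scaling (adjusted p 0.076). Rises in the list numbered 2 (Mef2c-labelled replicate 1 or 2 or wild-type replicate 1 or 2 left out).

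Of the ATF4 amino acid stress genes 0 of 17 rose and 4 fell (0 and 0 without Mef2c-labelled replicate 1), and falls numbered 0 (Mef2c-labelled replicate 1 or 2 or wild-type replicate 3 left out) and 1 (wild-type replicate 1 left out). Psat1 (log2 difference -0.45, SE 0.14, adjusted p 0.0427), Phgdh (log2 difference -0.36, SE 0.11, adjusted p 0.0365) and Shmt2 (log2 difference -0.35, SE 0.11, adjusted p 0.0395), of serine and glycine synthesis, and Nars (log2 difference -0.21, SE 0.06, adjusted p 0.0221), an aminoacyl-tRNA synthetase, were the 4. The Psat1 call was lost without Mef2c-labelled replicate 1 or 2 or 3, Mef2d-labelled replicate 1 or 2, HDAC1-labelled replicate 3, HDAC2-labelled replicate 1 or 2 or 3 or wild-type replicate 1 or 3 (adjusted p 0.05 to 0.209), and with the B cell covariate (adjusted p 0.0738). The Phgdh call was lost without Mef2c-labelled replicate 1 or 2 or wild-type replicate 1 or 3 (adjusted p 0.0633 to 0.187), and with the B cell covariate (adjusted p 0.0626). The Shmt2 call was lost without Mef2c-labelled replicate 1 or 2, HDAC1-labelled replicate 1, HDAC2-labelled replicate 1 or wild-type replicate 1 or 3 (adjusted p 0.0502 to 0.197). The Nars call was lost without Mef2c-labelled replicate 1 or 2 or wild-type replicate 3 (adjusted p 0.0596 to 0.119). Among heat shock genes and chaperones 1 of 17 rose and 3 fell (0 and 1 without Mef2c-labelled replicate 1), and falls numbered 1 (Mef2c-labelled replicate 1 or 2 or wild-type replicate 3 left out). Rises in the heat shock and chaperones list numbered 0 (Mef2c-labelled replicate 1 or 2 or wild-type replicate 1 or 2 or 3 left out). Hspa1b, an inducible HSP70, was at 4.56, 1.05 and 0.537 FPKM in Mef2c-labelled libraries, against 0.208, 0.359 and 0.269 FPKM in wild type (log2 difference 1.03, SE 0.34, adjusted p 0.0454). The Hspa1b call was lost without Mef2c-labelled replicate 1 or 2, Mef2d-labelled replicate 1 or 2 or 3, HDAC1-labelled replicate 1 or 2 or 3, HDAC2-labelled replicate 1 or 2 or 3 or wild-type replicate 1 or 2 or 3 (adjusted p 0.0505 to 0.161), and with the B cell covariate (adjusted p 0.065). Dnajb4, a cochaperone, was at 4.26, 4.56 and 4.23 FPKM in Mef2c-labelled libraries, against 6.49, 7.54 and 5.7 FPKM in wild type (log2 difference -0.50, SE 0.12, adjusted p 0.0122). Hspd1 and Hspe1, the mitochondrial chaperonin pair, were lower (log2 difference -0.33, SE 0.09, adjusted p 0.0201 and log2 difference -0.34, SE 0.10, adjusted p 0.0344). The Hspd1 call was lost without Mef2c-labelled replicate 1 or 2 or wild-type replicate 3 (adjusted p 0.0622 to 0.112). The Hspe1 call was lost without Mef2c-labelled replicate 1 or 2 or wild-type replicate 1 or 3 (adjusted p 0.0671 to 0.169).

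Of H3K4 methyltransferases and partners 4 of 14 rose and 0 fell (1 and 0 without Mef2c-labelled replicate 1), and rises numbered 1 (Mef2c-labelled replicate 1 or wild-type replicate 3 left out) and 7 (Mef2c-labelled replicate 3 left out). Kmt2a, which encodes MLL1, was at 42.8, 25.5 and 23.3 FPKM in Mef2c-labelled libraries, against 16.1, 16.7 and 14.1 FPKM in wild type (log2 difference 0.88, SE 0.19, adjusted p 0.00571). Replicate 1 was the highest of the Mef2c-labelled group, and the call held without it (adjusted p 0.0222). Kmt2b, of the same family (log2 difference 0.41, SE 0.10, adjusted p 0.0145), Kdm6a, an H3K27 demethylase listed among the partners (log2 difference 0.20, SE 0.05, adjusted p 0.0121), and Rbbp5, a shared subunit (log2 difference 0.23, SE 0.07, adjusted p 0.0367), were higher. The Kmt2b call was lost without Mef2c-labelled replicate 1 or wild-type replicate 3 (adjusted p 0.071 to 0.075). The Kdm6a call was lost without Mef2c-labelled replicate 1 or wild-type replicate 3 (adjusted p 0.0531 to 0.0642). The Rbbp5 call was lost without Mef2c-labelled replicate 1 or 2 or wild-type replicate 1 or 2 or 3 (adjusted p 0.0524 to 0.153), and with median-of-ratios scaling (adjusted p 0.107). Of class I deacetylases and corepressors 2 of 28 rose and 5 fell (0 and 1 without Mef2c-labelled replicate 1, and 0 and 6 with median-of-ratios scaling), and falls numbered 1 (Mef2c-labelled replicate 1 or wild-type replicate 3 left out), 2 (Mef2c-labelled replicate 2 left out) and 3 (wild-type replicate 1 left out). Rises in the class I HDACs and corepressors list numbered 0 (Mef2c-labelled replicate 1 or 2 or wild-type replicate 1 or 3 left out). The histone chaperones Rbbp7 (log2 difference -0.33, SE 0.08, adjusted p 0.0108) and Rbbp4 (log2 difference -0.25, SE 0.06, adjusted p 0.0108) were lower. The Rbbp7 call was lost without Mef2c-labelled replicate 1 or wild-type replicate 3 (adjusted p 0.0551 to 0.0554). The Rbbp4 call was lost without Mef2c-labelled replicate 1 or wild-type replicate 3 (adjusted p 0.0507 to 0.0588). Sap30, of the SIN3 complex, was lower (log2 difference -0.48, SE 0.16, adjusted p 0.0473) and Chd3, of the NuRD complex, higher (log2 difference 0.27, SE 0.09, adjusted p 0.0413). The Sap30 call was lost without Mef2c-labelled replicate 1 or 2 or 3, Mef2d-labelled replicate 1 or 2 or 3, HDAC1-labelled replicate 1 or 2 or 3, HDAC2-labelled replicate 3 or wild-type replicate 1 or 3 (adjusted p 0.0528 to 0.221). The Chd3 call was lost without Mef2c-labelled replicate 1 or 2, Mef2d-labelled replicate 1 or 2, HDAC1-labelled replicate 3, HDAC2-labelled replicate 2 or wild-type replicate 1 or 3 (adjusted p 0.0503 to 0.171), and with median-of-ratios scaling (adjusted p 0.108).

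**Figure D4:**
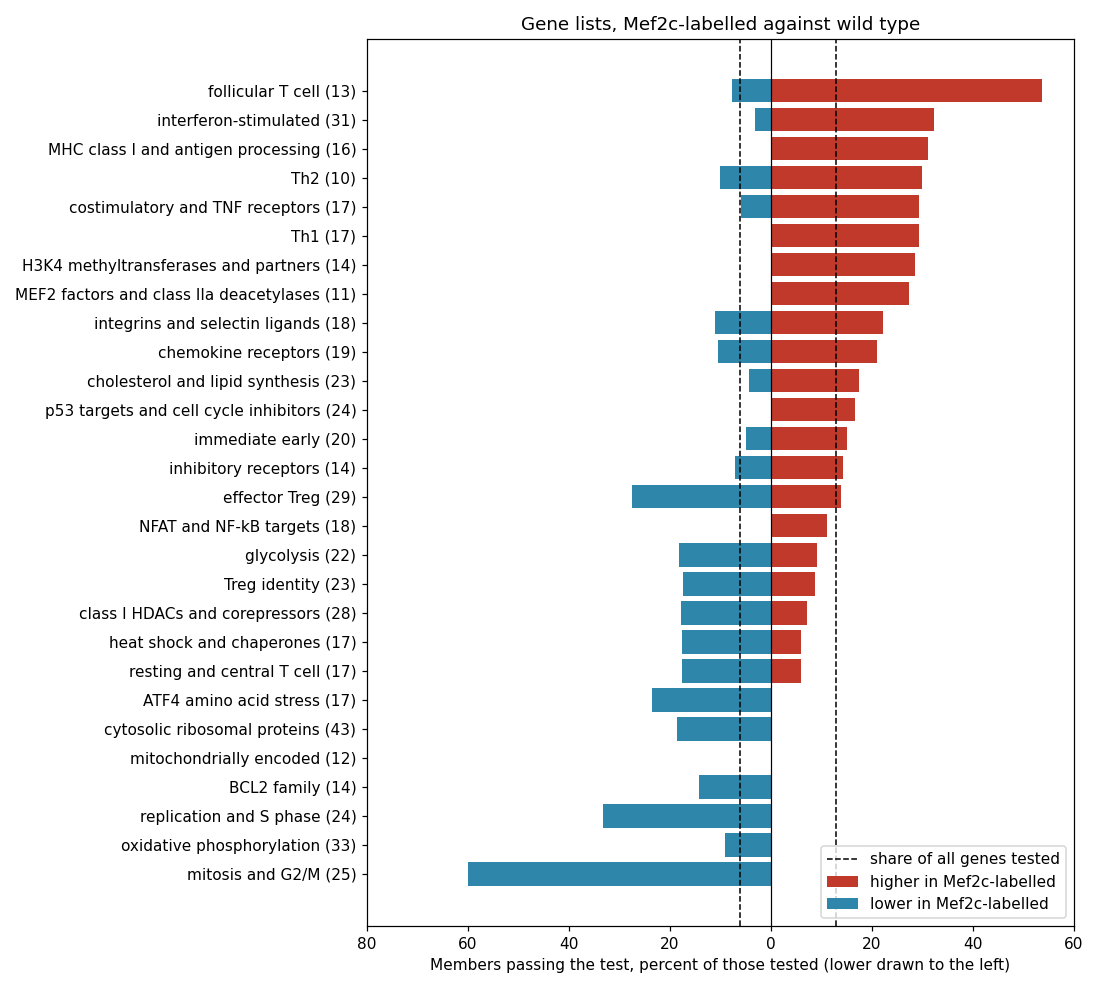
Share of the tested members of the pathway lists (number tested in parentheses) that passed the test, higher in Mef2c-labelled libraries drawn to the right and lower to the left. Dashed lines give the shares over all 12223 genes, 12.9% and 6.06%. The MEF2 target and Th17 lists, with few genes tested, and the cell marker lists are not drawn. The mitosis list has the longest bar to the left, 15 of 25, and the follicular T cell list the longest to the right, 7 of 13.

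Marker lists of cell types gave calls, in either direction, that read against 19% of all genes: 1 of 24 for B cells, 1 of 12 for plasma cells (Irf4, given above), 2 of 14 for NK and cytotoxic cells, 1 of 8 for gamma-delta T and NKT cells, 1 of 12 for macrophages, 3 of 8 for dendritic cells, 1 of 7 for erythroid cells and 1 of 12 for T cells and Treg. For CD8 T cells (2 genes), neutrophils (9) and platelets (1), limma called 0, and 0 also at an unadjusted p under 0.05. The erythroid count, of falls, was 0 (wild-type replicate 3 left out) and 5 (wild-type replicate 1 left out). Falls of macrophage markers numbered 0 (Mef2c-labelled replicate 1 or 2 or 3 or wild-type replicate 2 or 3 left out), and 2 with median-of-ratios scaling. Dendritic cell markers gave 2 rises, which numbered 0 (Mef2c-labelled replicate 1 or 2 or wild-type replicate 2 or 3 left out) and 1 (Mef2c-labelled replicate 3 or wild-type replicate 1 left out), and 0 with median-of-ratios scaling. The fall among T cell and Treg markers numbered 0 (Mef2c-labelled replicate 1 or wild-type replicate 3 left out) and 2 (Mef2c-labelled replicate 3 left out), and 2 with median-of-ratios scaling. In a fit of the 6 libraries alone, 6 of the 24 B cell markers were higher, where 907 of all 12223 genes were. In that fit 14 of the 24 had an unadjusted p under 0.05, for which no share of all genes is given here. With the B cell marker mean as a covariate, 7 of 12 macrophage, 6 of 14 NK and cytotoxic and 2 of 2 CD8 T cell markers were lower. In that fit 894 of all 12223 genes were lower. Klrb1c, which encodes the NK cell receptor NK1.1, was at 0.887, 0.751 and 0.766 FPKM in Mef2c-labelled libraries, against 4.4, 4.81 and 3.29 FPKM in wild type (log2 difference -1.51, SE 0.28, adjusted p 0.00205). The NK receptor Klra8 was at 0.0823, 0 and 0 FPKM in Mef2c-labelled libraries, against 0.659, 1.28 and 0.595 FPKM in wild type (log2 difference -0.83, SE 0.17, adjusted p 0.00386), and these were the 2 of 14 NK and cytotoxic markers that fell, with 0 higher. Batf3, a factor of cross-presenting dendritic cells that T cells also express, was at 3.27, 1.54 and 2.96 FPKM in Mef2c-labelled libraries, against 8.92, 6.35 and 12 FPKM in wild type (log2 difference -1.49, SE 0.30, adjusted p 0.00336), while Xcr1, their chemokine receptor, was higher (log2 difference 0.34, SE 0.11, adjusted p 0.0452). The Xcr1 call was lost without Mef2c-labelled replicate 1 or 2, Mef2d-labelled replicate 1 or 2 or 3, HDAC1-labelled replicate 1, HDAC2-labelled replicate 1 or 2 or 3 or wild-type replicate 1 or 2 or 3 (adjusted p 0.0513 to 0.17), and with median-of-ratios scaling (adjusted p 0.0664), and with the B cell covariate (adjusted p 0.068). C1qa, a complement gene of macrophages, was at 1.86, 0.368 and 0.531 FPKM in Mef2c-labelled libraries, against 3.31, 4.5 and 5.5 FPKM in wild type (log2 difference -1.56, SE 0.52, adjusted p 0.0473). The C1qa call was lost without Mef2c-labelled replicate 1 or 2 or 3, Mef2d-labelled replicate 3, Dyrk1-labelled replicate 2, HDAC1-labelled replicate 1, HDAC2-labelled replicate 3 or wild-type replicate 1 or 2 or 3 (adjusted p 0.0506 to 0.158). Tcrg-C4, a constant segment of the gamma T cell receptor, was at 19, 16.1 and 16.9 FPKM in Mef2c-labelled libraries, against 10, 11.6 and 9.8 FPKM in wild type (log2 difference 0.68, SE 0.15, adjusted p 0.00708). Pou2f2, which encodes OCT2 of B cells and activated T cells, was at 40, 40 and 34.4 FPKM in Mef2c-labelled libraries, against 22, 20.9 and 21.1 FPKM in wild type (log2 difference 0.81, SE 0.13, adjusted p 0.000721). Cd3g, of the T cell receptor complex, was lower (log2 difference -0.26, SE 0.07, adjusted p 0.0206). The Cd3g call was lost without Mef2c-labelled replicate 1 or wild-type replicate 3 (adjusted p 0.0605 to 0.108). Neutrophil RNA varied within both groups, with S100a9 at 93.1, 27.1 and 31.4 FPKM in Mef2c-labelled libraries, against 2.34, 45 and 76.5 FPKM in wild type and S100a8 at 80.5, 22.9 and 30.4 FPKM in Mef2c-labelled libraries, against 2.6, 32.7 and 76.1 FPKM in wild type, and neither passed (adjusted p 0.699 and 0.714). Cd8a was at 2.54, 0.577 and 1.28 FPKM in Mef2c-labelled libraries, against 0.651, 0.707 and 4.27 FPKM in wild type (log2 difference -0.07, SE 0.78, adjusted p 0.96), Cd8b1 at 11.8, 7.91 and 8.36 FPKM in Mef2c-labelled libraries, against 10.1, 10.2 and 13.4 FPKM in wild type (log2 difference -0.25, SE 0.45, adjusted p 0.744), and the platelet marker Itgb3 at 18.1, 18.4 and 14.9 FPKM in Mef2c-labelled libraries, against 16.7, 17 and 14.9 FPKM in wild type (log2 difference 0.07, SE 0.12, adjusted p 0.719).

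All comparisons share the Mef2c-labelled libraries, so their values are set side by side only. Against the Mef2d-labelled libraries 374 of 12223 genes passed (3.06%), 196 higher (1.6%) and 178 lower (1.46%). Without Mef2d-labelled replicate 2 the count was 243. Slfn8 was at 3, 1.87 and 1.79 FPKM in Mef2c-labelled and 44.4, 36.7 and 38.3 FPKM in Mef2d-labelled libraries (log2 difference -3.68, SE 0.14, adjusted p 1.27e-10). Mtmr9 was at 107, 102 and 97.4 FPKM in Mef2c-labelled and 13.7, 13.7 and 13.7 FPKM in Mef2d-labelled libraries (log2 difference 2.81, SE 0.11, adjusted p 2.37e-10). Xkr6 (log2 difference 2.54, SE 0.15, adjusted p 4.07e-08), Ifi44l (log2 difference 2.93, SE 0.12, adjusted p 2.72e-10), Hmga1b (log2 difference 2.57, SE 0.33, adjusted p 0.000183) and Tlcd2 (log2 difference 1.75, SE 0.14, adjusted p 1.18e-06) were likewise higher than in Mef2d-labelled libraries. Rpl30 was lower (log2 difference -1.75, SE 0.08, adjusted p 1.24e-09), at 507, 573 and 545 FPKM in Mef2d-labelled libraries, and so was Polr2k, a subunit shared by the RNA polymerases, at 8.22, 4.19 and 8.61 FPKM in Mef2c-labelled and 22.3, 23.7 and 24.2 FPKM in Mef2d-labelled libraries (log2 difference -1.66, SE 0.24, adjusted p 0.000586). Tspoap1, an adaptor protein gene (log2 difference -2.61, SE 0.23, adjusted p 4.1e-06), Pbx4, a homeobox gene (log2 difference -1.54, SE 0.14, adjusted p 8.76e-06), and Ppp1r3e, a regulatory subunit of protein phosphatase 1 (log2 difference -1.43, SE 0.15, adjusted p 2.86e-05), were also among the largest falls. Rps3a1 was much higher than in Mef2d-labelled libraries (log2 difference 1.94, SE 0.21, adjusted p 4.8e-05), at 1694, 1730.0 and 1846 FPKM in Mef2c-labelled and 424, 488 and 459.5 FPKM in Mef2d-labelled libraries, yet did not pass against wild type (log2 difference -0.17, SE 0.21, adjusted p 0.626).

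Several of the largest differences from wild type did not pass against the Mef2d-labelled libraries. Orm2 was at 39.5, 33.6 and 29.9 FPKM there (log2 difference -0.27, SE 0.13, adjusted p 0.405, 95% interval -0.54 to 0.01). Pstpip2 was at 19.4, 20.9 and 19.4 FPKM there (log2 difference -0.26, SE 0.22, adjusted p 0.729, 95% interval -0.72 to 0.20). In both genes the values of the Mef2d-labelled libraries lay near those of the Mef2c-labelled ones and far from wild type. Trim12a was at 0, 0 and 6.57 FPKM in Mef2d-labelled libraries (log2 difference -0.94, SE 0.51, adjusted p 0.507, 95% interval -2.02 to 0.15), where replicate 3 lay between the other 2 and wild type, and Trim5 and Trim30d had the same order. Oasl2 was at 0.469, 0.262 and 0.605 FPKM there (log2 difference -0.08, SE 0.25, adjusted p 0.964, 95% interval -0.62 to 0.46). Klrb1c was at 1.01, 0.743 and 0.474 FPKM there (log2 difference 0.06, SE 0.28, adjusted p 0.979, 95% interval -0.54 to 0.66). Lrrc32 was at 26.8, 33.8 and 49 FPKM in Mef2d-labelled libraries and was lower still in the Mef2c-labelled ones (log2 difference -0.97, SE 0.17, adjusted p 0.00302).

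Against the mean of the Mef2d-, Dyrk1-, HDAC1- and HDAC2-labelled groups, which shares no wild-type library, 1100 genes passed (9%), 576 higher (4.71%) and 524 lower (4.29%). Without Mef2c-labelled replicate 2 the count was 678, and without replicate 3 it was 603. Mtmr9 (log2 difference 2.72, SE 0.09, adjusted p 9.47e-12), Ifi44l (log2 difference 3.02, SE 0.09, adjusted p 5.67e-12), Hmga1b (log2 difference 3.03, SE 0.26, adjusted p 1.26e-06), Xkr6 (log2 difference 2.66, SE 0.12, adjusted p 6.61e-10), Tlcd2 (log2 difference 1.76, SE 0.11, adjusted p 2.99e-08) and Cyp4f18 (log2 difference 2.03, SE 0.43, adjusted p 0.00646) were the 6 rises that the naming rule gave. Ifi44l was listed at 0 in 11 of the 12 libraries of those groups, and at 0.307 FPKM in Mef2d-labelled replicate 3. Slfn8 (log2 difference -3.69, SE 0.11, adjusted p 3.57e-12), Zfp429 (log2 difference -2.70, SE 0.34, adjusted p 7.76e-05), Tspoap1 (log2 difference -2.16, SE 0.18, adjusted p 1.06e-06), Lrrc32 (log2 difference -1.65, SE 0.13, adjusted p 6.46e-07), Rpl30 (log2 difference -1.64, SE 0.06, adjusted p 9.1e-11) and Apobec3 (log2 difference -1.63, SE 0.34, adjusted p 0.00647) were the 6 falls it gave. For Mtmr9, Slfn8 and Rpl30 the Mef2c-labelled libraries stood apart from all 15 others. Around Mef2c on chromosome 13, 18 of the 147 genes passed (12.2%), against 8.96% elsewhere. That share was not set against the rest of chromosome 13. Of the mitosis and S phase lists limma called 0 genes here, with 10 of 25 and 3 of 24 at an unadjusted p under 0.05. In the other groups the median of the 25 mitosis genes relative to wild type ranged from -1.16 in HDAC2-labelled replicate 1 to 0.64 in Dyrk1-labelled replicate 1.

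**Figure D5:**
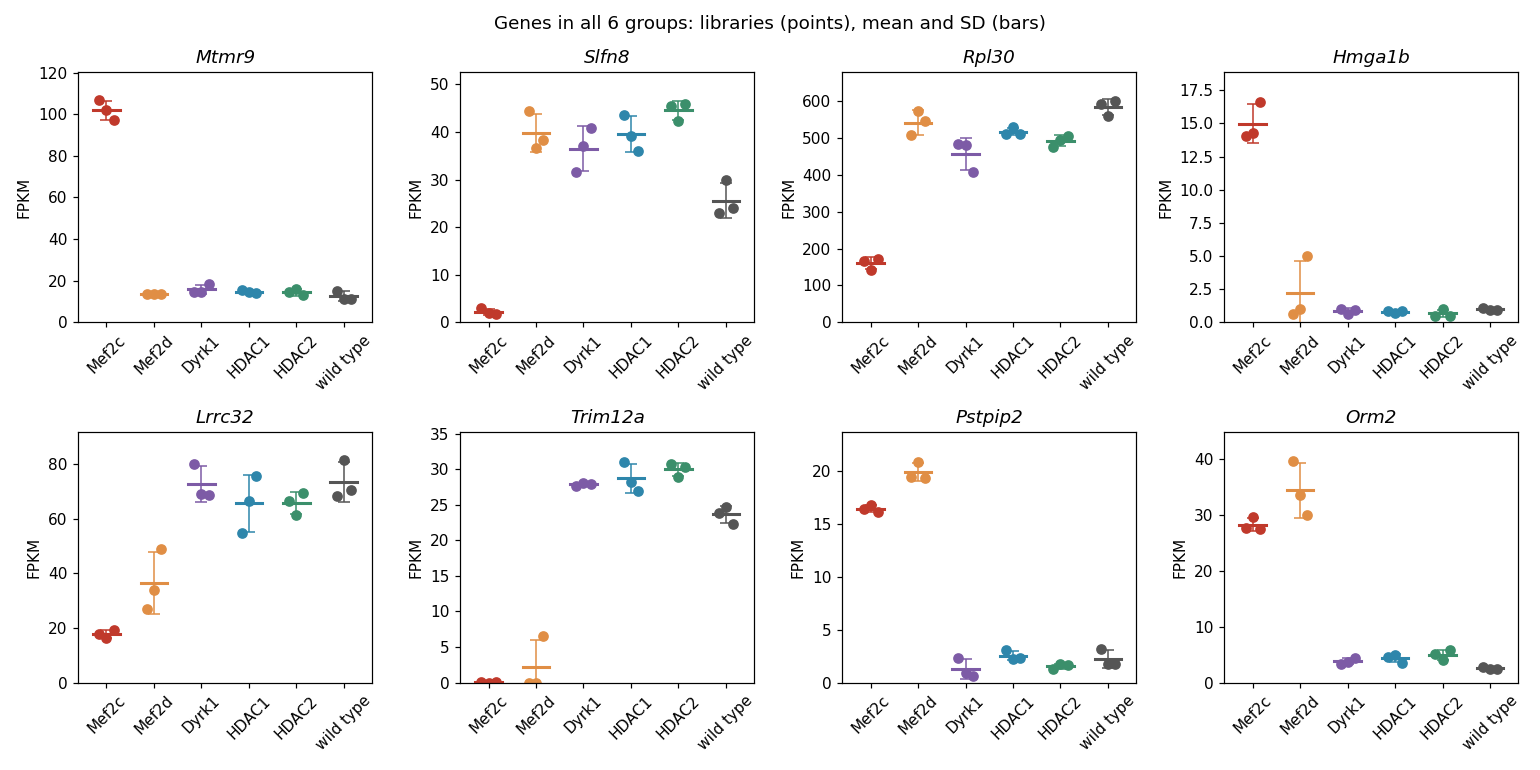
FPKM of 8 genes in the 6 groups, from left Mef2c-, Mef2d-, Dyrk1-, HDAC1- and HDAC2-labelled and wild type; points are libraries, long bars means and whiskers SD. Mtmr9 is high and Slfn8 and Rpl30 low in the Mef2c-labelled libraries alone, Hmga1b is also raised in Mef2d-labelled replicate 3 at 4.98 FPKM, while Orm2, Pstpip2 and Trim12a take similar values in the Mef2c-labelled and most Mef2d-labelled libraries.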

How the data were processed

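The series sequenced mRNA of Treg in 18 libraries with paired reads. Per the submitters' processing notes, STAR, HTSeq and the mm10 build were used; versions, strand setting and annotation release are not given in the sources used here. The values the authors deposited were treated as FPKM, a unit read from the values, since neither labels nor table name it and RPKM cannot be told apart from it. Depth was recovered from the steps of low values with GENCODE M21 exon lengths: in each library 40.8 to 44.4% of values under 0.5 FPKM were whole reads within 0.03, against about 4.2% at trial depths. Without strand information, reads of overlapping and antisense genes cannot be told apart. Of 35275 identifiers 34490 had a symbol, and positions are those of GENCODE M21 on mm10.

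The analysis used log2(FPKM + 1) and limma 3.58.1 in R 4.3.3: genes at 1 FPKM or more in 3 or more libraries (12223), a mean per group over 18 libraries (12 residual degrees of freedom), a variance trend, and Benjamini-Hochberg adjusted p under 0.05 with no minimum fold. Differences on this scale understate the change of low genes. Means are given ± SD, with n = 3. Named genes were the MEF2 list, the 12 largest rises and falls (5 FPKM or more in the higher group, groups not overlapping, without clone-like, receptor segment and Y-linked genes), up to 6 near Mef2c, up to 4 per list, and up to 6 each way in the other comparisons; 4 of the genes this named are not reported here. The comparison, the lists and the rule were chosen with earlier results of these data known. On simulated data for this comparison with 12223 genes, 40% of genes changed 1.25-fold, 78% changed 1.5-fold, 92% changed 2-fold and 98% changed 4-fold were recovered, and 4.94% of calls were false. The simulated noise was normal and independent between genes, and the changed genes had a mean of 5 FPKM or more. Shifts shared by many genes, as in cell mixture, were not simulated. These rates therefore do not measure the power or the false calls of the real comparison. Promoter sequences are from RefSeq (GRCm38.p6).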

Additional observations from a re-analysis of the deposited data

How the results depend on the processing

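Against wild type, the 2322 calls became 1341 when only the 6 libraries entered and 507 when these also left out Mef2c-labelled replicate 1. Leaving out any of the 18 libraries in turn gave 1150 (without wild-type replicate 3) to 2945 (without Dyrk1-labelled replicate 3). Against Mef2d-labelled libraries the 374 calls became 246 when only those groups entered, 155 when these also left out Mef2c-labelled replicate 1, and 243 to 431 without single libraries. Against the other 4 deletion groups the 1100 calls became 603 to 1247 without single libraries. The other alternatives moved these counts by less than 1.5 times: for wild type 2205 with median-of-ratios scaling, 2322 with a pseudocount of 0.1, 2119 with no filter, 1760 of 8931 genes at a mean of 5 FPKM in a group, and 2554 with the B cell marker mean as a covariate. A replicate block gave 2181 calls (1464 higher, 717 lower). Deviations of same-numbered samples had correlations of -0.143, -0.151 and 0.14, against -0.105 to 0.208 between differently numbered ones. With 3 libraries per group these values cannot decide whether same-numbered samples belong together. Differences that changed sign were all of genes that did not pass: with the B cell covariate Mef2c -0.074, Rps3a1 0.074, S100a9 -0.74, S100a8 -0.81 and Trim30a -0.011; with median-of-ratios scaling Map2k5 -0.037 and Trim30a -0.011; and over single libraries left out Hdac7 -0.076 to 0.004, Map2k5 -0.04 to 0.055, Cd8a -0.37 to 0.48, S100a9 -0.44 to 1.83, S100a8 -0.37 to 1.84 and Trim30a -0.042 to 0.14. Where the construction of a fit does not show it, the cause was not tested. Among named genes, 44 lost and 3 gained a call when only the contrasted groups entered, and 80 lost it when these also left out Mef2c-labelled replicate 1. A call was lost by 26 with no filter, 18 with median-of-ratios scaling, 10 with the block, 8 with the B cell covariate and 1 with the pseudocount of 0.1. Depth limits genes near 1 FPKM, Mef2c among them.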
